A study of Homo sapiens with 183 samples.

Results

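The EGF receptor family and its ligands were followed through mRNA levels in 9 human cancer cell lines. The 10 members, of 19875 gene names measured, were taken by name: the receptors EGFR, ERBB2 and ERBB3 and the ligands AREG, EREG, TGFA, HBEGF, BTC, EPGN and NRG1. All 10 members are in each of the 8 tables, which hold 183 poly-A RNA-seq libraries in 59 groups.

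Gene knockout and drug treatment were each compared with their controls. The pancreatic cancer lines AsPC-1, SUIT-2 (both of the classical subtype), T3M-4, BxPC-3 (both basal-like) and CFPAC-1 carried Cas9 and received lentiviral sgRNAs against KLF5, RUVBL1, RUVBL2, CDK1, RPA3, CHD4 or SERPINB5, or against the ROSA26 locus as control (sgRosa), and RNA was taken on day 5. AsPC-1 and T3M-4 were also transduced with an empty vector or with a RUVBL1 A62T or RUVBL2 dF109 cDNA, variants that resist CB-6644, an allosteric inhibitor of the RUVBL1/2 ATPase, and spent 24 h in CB-6644 or DMSO. T84 (colorectal cancer), A-375 (melanoma), H1048 (small cell lung cancer of the tuft-like type) and RH30 (rhabdomyosarcoma) spent 24 h in CB-6644 or DMSO without a vector. KLF5 is a transcription factor and RUVBL1 and RUVBL2 are ATPases that work together in chromatin remodeling complexes. CHD4 is a chromatin remodeler, SERPINB5 a serpin gene, and CDK1 and RPA3 are genes that dividing cells need. A knockout group is a bulk culture, and cells that escaped editing remain in it. The study's legends give 2 sgRNAs for KLF5, RUVBL1, RUVBL2, SERPINB5 and the control. Its guide list has 2 for CHD4, 1 each for CDK1 and RPA3, and more than 2 for KLF5, RUVBL1 and RUVBL2. The labels do not say which a library carries. Groups held 2 to 6 libraries, except that each vector had 1 DMSO library per line. The study calls the libraries of several knockout experiments biological replicates, but the labels do not say which came from separate cultures, so the p-values measure the spread between libraries, which may be technical. Libraries of one experiment share their control libraries across comparisons.

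EGFR, ERBB2 and ERBB3 are receptor tyrosine kinases that signal as dimers at the cell surface, and ERBB2 binds no ligand of its own while ERBB3 has little kinase activity and relies on a partner. AREG (amphiregulin), EREG (epiregulin), TGFA (transforming growth factor alpha), HBEGF (heparin-binding EGF-like growth factor), BTC (betacellulin) and EPGN (epigen) bind EGFR, EREG, HBEGF and BTC also bind ERBB4, and NRG1 (neuregulin 1) binds ERBB3 and ERBB4. The ligands are made as membrane-anchored precursors that proteases such as ADAM17 cut loose, and RAS-MAPK signalling downstream of these receptors is a main growth signal of epithelial and pancreatic cancer cells.

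Of the ligand genes, EPGN, EREG, AREG and BTC lie side by side on chromosome 4, within 486 kb (chr4:74308470-74794523, GRCh38.p14). EGFR lies on chromosome 7 (55019017 to 55211628), ERBB2 on chromosome 17 (39688094 to 39728658), ERBB3 on chromosome 12 (56080108 to 56103505), TGFA on chromosome 2 (70447284 to 70553826) and HBEGF on chromosome 5 (140332843 to 140346603). RefSeq start sites were matched for 8 of the 10 members. The 250 bases upstream of 3 ligands are shown 5′ to 3′ on the strand of the gene. These ligands were all called higher in several RUVBL1 knockout and CB-6644 comparisons, and each in RUVBL2 knockout of at least 1 line. The windows are chr4:74444886-74445135 (plus strand) for AREG, chr4:74364895-74365144 (plus strand) for EREG and chr5:140346604-140346853 (minus strand) for HBEGF, all on GRCh38.p14, and no annotated exon overlaps them. Capitals mark each match to 1 of 5 motifs searched on both strands, namely the CACCC box CCCACCC, the GC box CCCGCCC, the AP-1 motif TGANTCA, the cyclic AMP response element TGACGTCA and the TATA box TATAAA.
AREG: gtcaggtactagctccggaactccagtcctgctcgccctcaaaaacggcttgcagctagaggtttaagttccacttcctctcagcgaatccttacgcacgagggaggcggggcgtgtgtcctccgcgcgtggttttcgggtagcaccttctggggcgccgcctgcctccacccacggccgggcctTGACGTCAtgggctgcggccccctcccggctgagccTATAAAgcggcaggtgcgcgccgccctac
EREG: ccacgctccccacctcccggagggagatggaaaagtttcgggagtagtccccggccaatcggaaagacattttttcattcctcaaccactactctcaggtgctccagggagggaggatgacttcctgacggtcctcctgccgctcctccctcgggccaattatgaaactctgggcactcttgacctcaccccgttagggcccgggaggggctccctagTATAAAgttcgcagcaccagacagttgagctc
HBEGF: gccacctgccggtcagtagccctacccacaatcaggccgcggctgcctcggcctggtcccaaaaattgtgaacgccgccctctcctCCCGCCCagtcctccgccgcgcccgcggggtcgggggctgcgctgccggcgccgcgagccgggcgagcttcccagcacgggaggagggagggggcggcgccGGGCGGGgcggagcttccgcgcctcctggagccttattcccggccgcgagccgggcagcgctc
AREG holds TGACGTCA 65 bases and TATAAA 29 bases before its start site, EREG holds TATAAA 32 bases before it, and HBEGF holds CCCGCCC 164 and 63 bases before it. Of 35116 promoters of the same length, 10.7% hold TATAAA, 1.65% hold TGACGTCA, 31.5% hold CCCGCCC, 18.2% hold CCCACCC and 6.57% hold TGANTCA. EPGN holds TATAAA at 29 bases too, TGFA and BTC hold CCCACCC, and the matches are a description of the letters only.

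Libraries held between 11292 and 14024 genes at 1 TPM or more, and no 2 libraries were identical. In control libraries, all 5 epithelial markers (EPCAM, CDH1, KRT8, KRT18 and KRT19) reached 1 TPM in the 5 pancreatic lines, T84 and H1048, all 5 basal keratin and TP63 markers did so in T3M-4 and BxPC-3, all 4 myogenic markers in RH30, 3 of 4 tuft markers in H1048 and all 4 intestinal markers in T84. A-375 had 3 of 5 melanocytic markers, with PMEL and TYR below 1 TPM. Of 4 classical pancreatic markers, AsPC-1 and SUIT-2 had 3 (TFF1 below 1 TPM), T3M-4 and BxPC-3 had 2, and CFPAC-1 and T84 had 4. AsPC-1 had 1 of 4 fibroblast markers (LUM), with a sum of 90.5 to 138 TPM. Also, 3 of 4 tuft markers reached 1 TPM in T3M-4, BxPC-3 and T84, at a summed level of 3.505 to 42.9 TPM against 597 to 649.97 TPM in H1048, all 4 intestinal markers in AsPC-1, and 4 of 5 basal markers in H1048. RUVBL1 mRNA changed by -1.14 to -1.87 on the log2 scale in its 5 knockouts and RUVBL2 mRNA by -1.24 to -1.76 in its 4, and SERPINB5 mRNA by -1.35 in its own. KLF5 mRNA changed by between -0.41 (CFPAC-1) and 0.78 (T3M-4 experiment 2) in the KLF5 knockouts and CHD4 mRNA by 0.28, which does not check these labels, since Cas9 cutting need not lower an mRNA. CDK1 mRNA changed by between -0.10 and -1.47 in the sgCDK1 groups and RPA3 mRNA by between -0.26 and -1.40 in the sgRPA3 groups. In 21 of the 39 comparisons with a control, all genes had a median log2 fold change more than 0.1 away from 0, so each count below is given with that median. Several libraries stood apart in mRNAs with long transcripts, a measure chosen after the values were seen: the median over genes whose longest coding transcript is at least 8000 nucleotides, against those under 2000, each relative to the rest of the group. It was beyond 0.5 in 10 of 177 libraries, and the lowest were T3M-4 sgKLF5 experiment 1 replicate 2 (-1.29), SUIT-2 sgRosa replicate 1 (-0.75), T3M-4 sgRPA3 experiment 1 replicate 2 (-0.51) and BxPC-3 sgKLF5 experiment 1 replicate 3 (-0.50). EGFR has a transcript of 9905 nucleotides and NRG1 one of 12518, while that of AREG has 1234. Medians over long and short transcripts are therefore given beside several results for EGFR and NRG1.

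Control levels are given as mean TPM ± SD over the sgRosa or DMSO libraries of a line, which number 17 in AsPC-1, 9 in T3M-4, 6 in BxPC-3 and 4 in each other line. TPM is a share of transcripts per length, so genes can be compared within a library, while the lines come from separately processed tables except for T84, A-375, H1048 and RH30, which share one, and the pooled libraries of BxPC-3, T3M-4 and AsPC-1 span several experiments. In a bulk culture, fewer cells making a transcript and less transcript per cell cannot be told apart. In falling order of the mean, EGFR stood at SUIT-2 (238 ± 129.8), AsPC-1 (174 ± 58.6), T3M-4 (121 ± 41.3), H1048 (108 ± 4.11), BxPC-3 (102 ± 13.9), CFPAC-1 (63.98 ± 8.595), T84 (32.6 ± 4.66), RH30 (21.2 ± 0.904) and A-375 (11.1 ± 0.803). Neighbours in that order whose libraries did not overlap were BxPC-3 from CFPAC-1, CFPAC-1 from T84, T84 from RH30 and RH30 from A-375. ERBB2, the partner without a ligand, stood at CFPAC-1 (101 ± 15.8), SUIT-2 (58.99 ± 25.1), T3M-4 (37.9 ± 7.62), AsPC-1 (35.1 ± 7.58), A-375 (30.2 ± 0.792), BxPC-3 (27.1 ± 3.92), T84 (24.4 ± 1.46), H1048 (21.6 ± 0.9097) and RH30 (20.6 ± 1.03). The neighbours without overlap were CFPAC-1 from SUIT-2 and T84 from H1048. ERBB3, the receptor of neuregulins, stood at A-375 (115 ± 9.34), SUIT-2 (98.999 ± 40.2), AsPC-1 (77.1 ± 43.5), T84 (59.9 ± 3.49), H1048 (57.6 ± 1.26), T3M-4 (41.2 ± 7.51), BxPC-3 (33.1 ± 7.89), CFPAC-1 (24.98 ± 2.72) and RH30 (6.31 ± 0.0448). RH30 had the least of all lines, and the neighbours without overlap were H1048 from T3M-4 and CFPAC-1 from RH30.

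AREG was the most abundant ligand transcript in 6 lines, with T3M-4 (442 ± 191), T84 (384 ± 16.2), CFPAC-1 (315 ± 36.6), BxPC-3 (261 ± 12.8), SUIT-2 (259 ± 76.1), AsPC-1 (95.02 ± 47.3), A-375 (13.8 ± 0.846), H1048 (4.996 ± 0.691) and RH30 (0.0239 ± 0.0477). It was near 0 in RH30, and of its neighbours T84 from CFPAC-1, AsPC-1 from A-375, A-375 from H1048 and H1048 from RH30 did not overlap. EREG, whose gene neighbours that of AREG, had means of CFPAC-1 (163 ± 30.7), SUIT-2 (127 ± 62.96), T84 (96.7 ± 9.62), T3M-4 (83.1 ± 43.5), BxPC-3 (42.1 ± 7.27), AsPC-1 (30.3 ± 11.9), H1048 (0.735 ± 0.169), RH30 (0.557 ± 0.128) and A-375 (0.554 ± 0.0946). The 3 lines of other origin than pancreas or colon (A-375, H1048 and RH30) had means under 1 TPM, and AsPC-1 from H1048 did not overlap. TGFA, the ligand first found in transformed cells, had A-375 (158 ± 1.99), SUIT-2 (98.3 ± 41.9), CFPAC-1 (84.3 ± 12.5), BxPC-3 (72.98 ± 3.29), T3M-4 (63.8 ± 28.5), T84 (36.4 ± 3.57), AsPC-1 (26.8 ± 8.87), H1048 (1.41 ± 0.217) and RH30 (0.279 ± 0.0569). A-375 melanoma cells had the highest mean of the 9 lines, with AREG at a lower level, and the neighbours without overlap were A-375 from SUIT-2, AsPC-1 from H1048 and H1048 from RH30. HBEGF, which binds heparan sulfate as well as its receptors, had BxPC-3 (114 ± 53.8), T3M-4 (81.8 ± 33.2), CFPAC-1 (52.3 ± 12.8), SUIT-2 (27.2 ± 13.1), RH30 (26.02 ± 0.929), T84 (15.6 ± 1.15), AsPC-1 (14.9 ± 5.38), A-375 (10.6 ± 0.788) and H1048 (5.16 ± 0.286). BxPC-3 and T3M-4 were highest, with overlapping libraries, and RH30 from T84 and A-375 from H1048 did not overlap. BTC was a minor transcript, at CFPAC-1 (10.3 ± 1.75), T84 (9.61 ± 0.635), T3M-4 (6.75 ± 1.15), SUIT-2 (5.77 ± 1.04), BxPC-3 (4.74 ± 1.32), A-375 (1.06 ± 0.277), AsPC-1 (0.148 ± 0.109), H1048 (0.0122 ± 0.0244) and RH30 (0.0121 ± 0.0243). AsPC-1, H1048 and RH30 had means under 1 TPM, and T84 from T3M-4, BxPC-3 from A-375 and A-375 from AsPC-1 did not overlap. EPGN was found above 1 TPM on average in T3M-4 alone among these lines, and its means were T3M-4 (12.4 ± 9.05), H1048 (0.702 ± 0.246), BxPC-3 (0.521 ± 0.449), SUIT-2 (0.287 ± 0.167), A-375 (0.262 ± 0.0387), AsPC-1 (0.249 ± 0.0819), CFPAC-1 (0.237 ± 0.1004), RH30 (0.206 ± 0.0509) and T84 (0.133 ± 0.1005). NRG1, the ERBB3 ligand, ranged widely, at T3M-4 (81.2 ± 26.99), BxPC-3 (52.1 ± 5.398), CFPAC-1 (21.6 ± 6.64), A-375 (10.2 ± 0.985), H1048 (1.33 ± 0.192), SUIT-2 (1.18 ± 0.261), RH30 (0.169 ± 0.0388), AsPC-1 (0.144 ± 0.0897) and T84 (0.118 ± 0.0543). The 2 basal-like lines had the highest NRG1, with CFPAC-1 next, and BxPC-3 from CFPAC-1, CFPAC-1 from A-375, A-375 from H1048 and SUIT-2 from RH30 did not overlap, while for EPGN T3M-4 from H1048 did not.

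**Figure D1:**
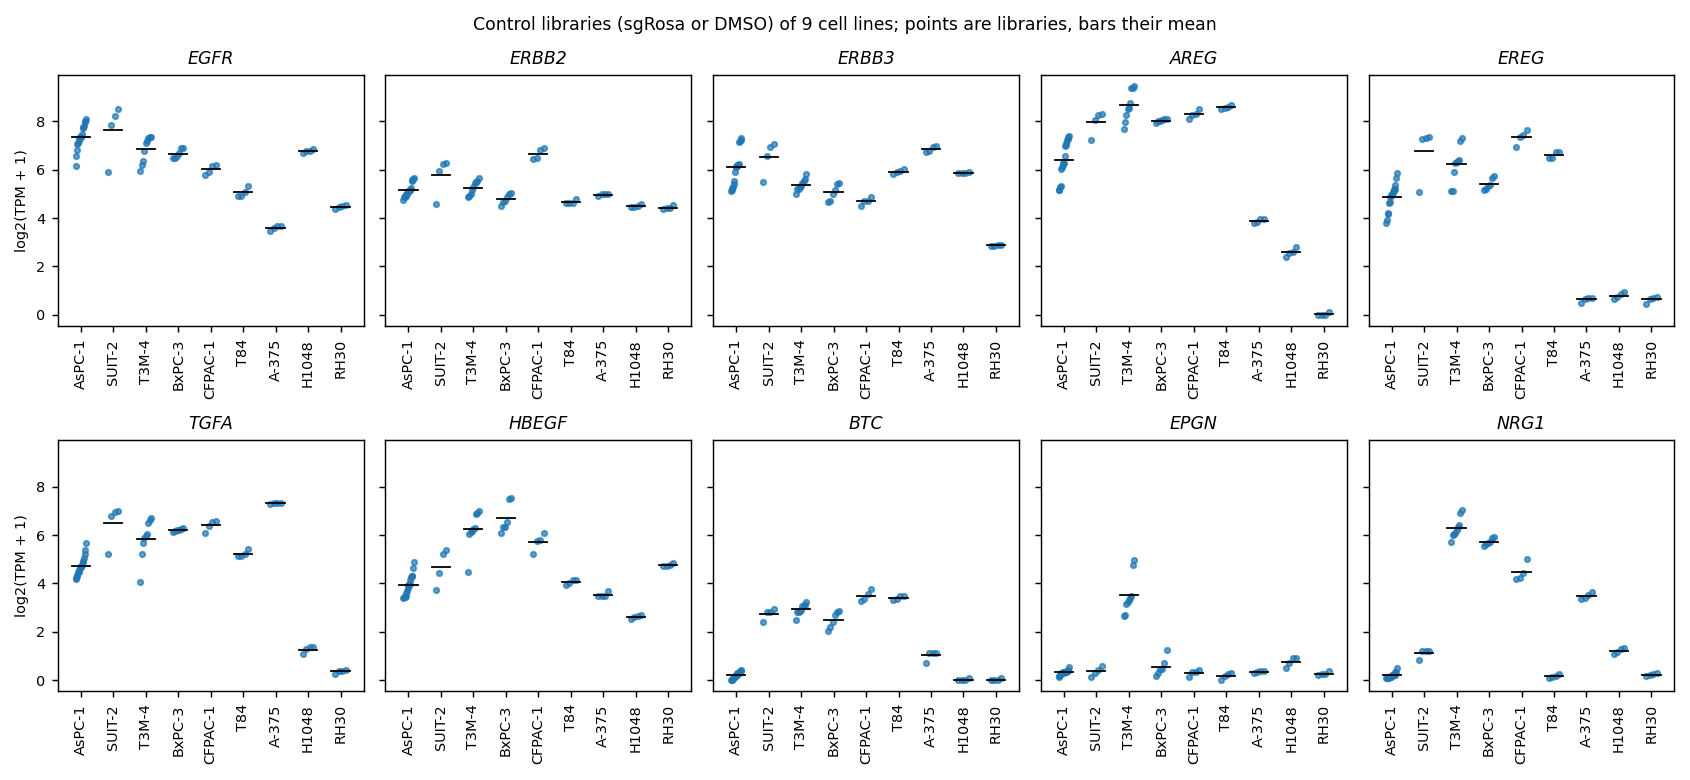
Control levels of the 10 members in 9 lines. The y axis is log2(TPM + 1), each point is 1 sgRosa or DMSO library, and each bar is the mean of a line. NRG1 is high in T3M-4 and BxPC-3, AREG and EREG are low in A-375, H1048 and RH30, and TGFA is highest in A-375.

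T84, A-375, H1048 and RH30 share a table, so their DMSO libraries were tested against each other with limma on log2(TPM + 1). 9 of the 10 members had a mean of at least 1 TPM and were tested. In the 4 DMSO libraries of each line, EGFR had 29.1, 29.5, 32.7 and 39.2 TPM in T84, 9.995, 10.9, 11.6 and 11.7 in A-375, 104, 107, 109 and 114 in H1048 and 19.97, 21.3, 21.6 and 22.1 TPM in RH30. ERBB2 had 23.3, 23.7, 23.8 and 26.5 TPM in T84, 29.01, 30.5, 30.6 and 30.7 in A-375, 20.8, 21.04, 21.6 and 22.9 in H1048 and 19.6, 20.2, 20.5 and 22.04 TPM in RH30. ERBB3 had 55.9, 58.3, 61.4 and 63.9 TPM in T84, 107, 108, 121 and 125 in A-375, 56.5, 57.1, 57.4 and 59.4 in H1048 and 6.27, 6.28, 6.32 and 6.37 TPM in RH30. EGFR was in 4 separate bands, H1048 highest and A-375 lowest, ERBB2 was the closest to even, and ERBB3 was low in RH30. AREG had 367, 379.96, 382 and 406 TPM in T84, 12.9, 13.3, 14.5 and 14.6 in A-375, 4.22, 4.88, 4.99 and 5.897 in H1048 and 0, 0, 0 and 0.0955 TPM in RH30. EREG had 87.9, 88.8, 104 and 106 TPM in T84, 0.412, 0.591, 0.603 and 0.609 in A-375, 0.5599, 0.641, 0.799 and 0.942 in H1048 and 0.372, 0.575, 0.627 and 0.655 TPM in RH30. TGFA had 33.99, 34.04, 36.1 and 41.6 TPM in T84, 156, 158, 159 and 160.3 in A-375, 1.101, 1.41, 1.55 and 1.57 in H1048 and 0.196, 0.291, 0.301 and 0.327 TPM in RH30. T84 was above the other lines in AREG and EREG, and A-375 above them in TGFA, with no overlap in either case. HBEGF had 14.1, 15.4, 16.4 and 16.6 TPM in T84, 10.05, 10.2, 10.2 and 11.7 in A-375, 4.75, 5.17, 5.31 and 5.403 in H1048 and 25.2, 25.4, 26.1 and 27.3 TPM in RH30. BTC had 9.03, 9.098, 10.1 and 10.2 TPM in T84, 0.644, 1.19, 1.19 and 1.202 in A-375, 0, 0, 0 and 0.0488 in H1048 and 0, 0, 0 and 0.0486 TPM in RH30. NRG1 had 0.06404, 0.105, 0.111 and 0.193 TPM in T84, 9.18, 9.63, 10.5 and 11.4 in A-375, 1.12, 1.23, 1.45 and 1.54 in H1048 and 0.133, 0.148, 0.174 and 0.222 TPM in RH30. HBEGF was highest in RH30, BTC in T84 and NRG1 in A-375.

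Between pairs of lines, 47 of 54 differences of members had an adjusted p (q, by limma over all genes tested) under 0.05. The counts, each with the share of all tested genes called in that pair, were 9 of 9 between T84 and A-375 (86.8%), 8 of 9 between T84 and H1048 (89.4%), 8 of 9 between T84 and RH30 (86.7%), 8 of 9 between A-375 and H1048 (88.3%), 8 of 9 between A-375 and RH30 (84.9%) and 6 of 9 between H1048 and RH30 (87.4%). Most genes differ between such lines, and the members' shares lay on both sides of those of all genes. The share of genes higher in the first line of a pair, among all genes called, was 31.2% in T84 against H1048 (49.6%), 34.4% in A-375 against H1048 (48.4%) and 64.6% in H1048 against RH30 (50.8%), with the share after scaling the libraries by the median of ratios in parentheses, and it moved by under 10 percentage points in the other pairs. The largest differences were in AREG (T84 above RH30 by 8.55 on the log2(TPM + 1) scale, q = 7.6e-25) and TGFA (A-375 above RH30 by 6.96, q = 2.1e-23). The 7 that did not pass, with the log2 difference, were ERBB3 between T84 and H1048 (0.05 ± 0.05 SE, q = 0.33), NRG1 between T84 and RH30 (-0.07 ± 0.07 SE, q = 0.40), EREG between A-375 and H1048 (-0.16 ± 0.09 SE, q = 0.093), EREG between A-375 and RH30 (-0.0012 ± 0.09 SE, q = 0.99), ERBB2 between H1048 and RH30 (0.06 ± 0.05 SE, q = 0.22), EREG between H1048 and RH30 (0.16 ± 0.09 SE, q = 0.096) and BTC between H1048 and RH30 (8.0e-05 ± 0.08 SE, q = 1.0).

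Each knockout or CB-6644 group was then compared with the sgRosa or DMSO libraries of its line and experiment, which gave 39 comparisons. A member is called higher or lower where its adjusted p, over all genes tested in that comparison, is under 0.05, and log2 fold changes are on the log2(TPM + 1) scale, which understates the change of low genes. HBEGF was called 14 higher and 4 lower of 39 comparisons in which it was tested, and TGFA 14 higher and 6 lower of 39. NRG1 was called 2 higher and 12 lower of 25, and it was the member with the most falls. Among receptors, ERBB3 was called 13 higher and 7 lower of 39, ERBB2 8 higher and 9 lower of 39 and EGFR 2 higher and 7 lower of 39. AREG was called 12 higher and 7 lower of 38, EREG 11 higher and 4 lower of 37, BTC 7 higher and 1 lower of 25 and EPGN 4 higher and 3 lower of 13. Over all 39, members were called higher in 26.1% and lower in 18.0% of 333 tests, against 20.1% and 10.9% for all genes. No member moved one way in every comparison, and the comparisons of an experiment share control libraries.

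**Figure D2:**
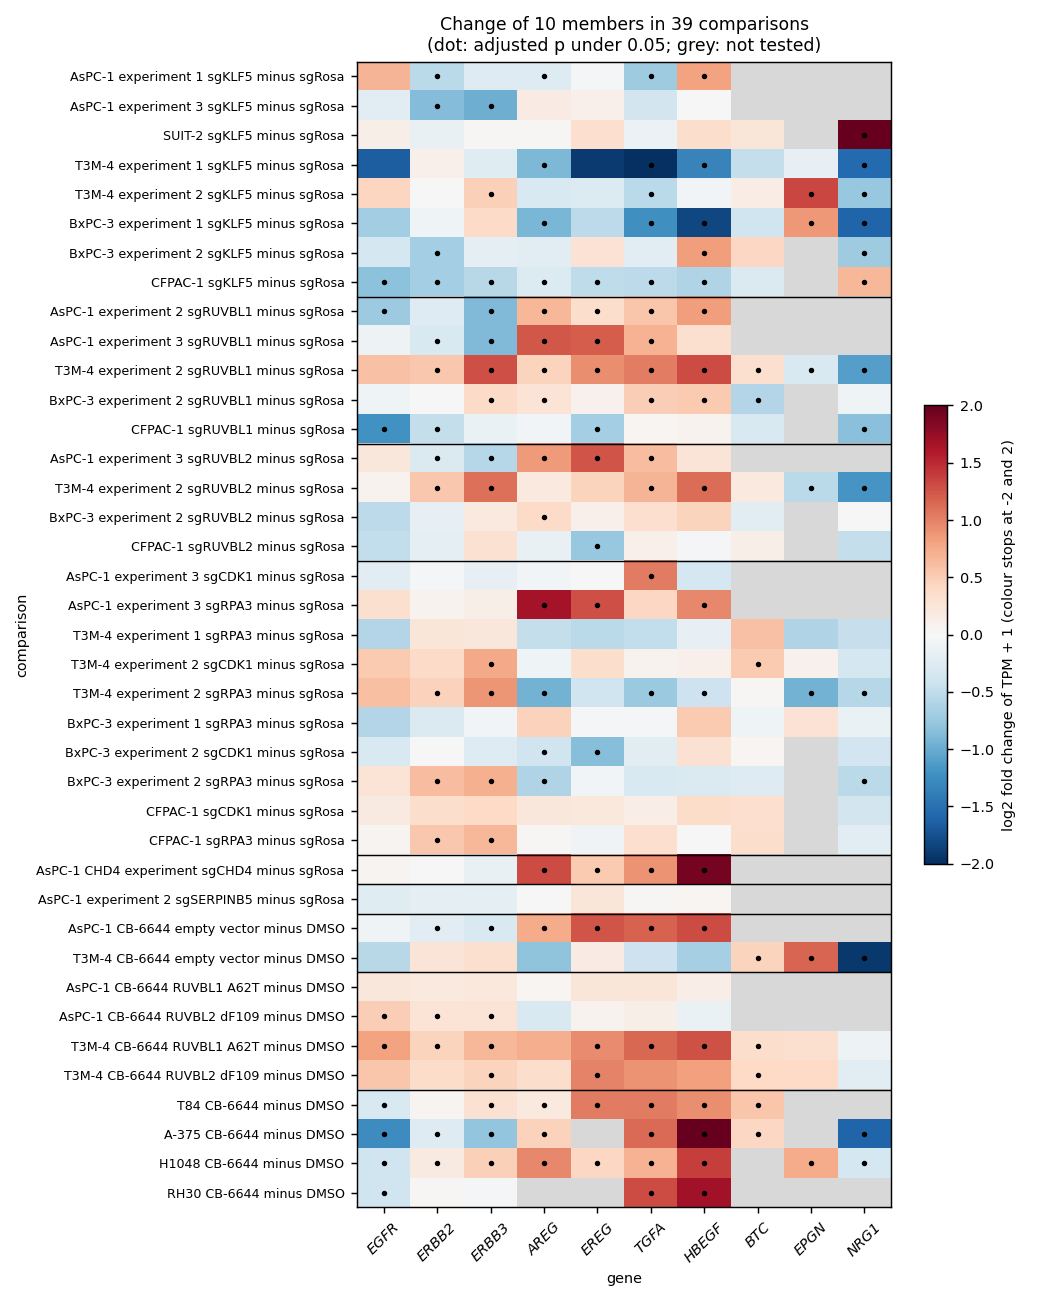
Log2 fold change (colour, on log2(TPM + 1)) of the 10 members (columns) in the 39 comparisons with a control (rows). Dots mark adjusted p under 0.05 in limma, grey cells were not tested, and lines part the knockouts of KLF5, RUVBL1, RUVBL2, CDK1 and RPA3, CHD4 and SERPINB5 from CB-6644 in empty vector cells, in variant cells and in the 4 other lines. HBEGF and TGFA are red in all 4 of the last rows, and NRG1 is blue in most rows of T3M-4 and BxPC-3.

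KLF5 knockout was measured in 8 comparisons over 5 lines, to ask what the loss of this transcription factor does in classical and basal-like cells. NRG1 changed in all 6 comparisons in which it was tested, lower in the 4 of the basal-like lines T3M-4 and BxPC-3 and higher in SUIT-2 and CFPAC-1. TGFA was lower in 5 of 8 comparisons, and HBEGF went either way, lower in 3 and higher in 2. ERBB2 was lower in 4 and AREG in 4, and no comparison called either higher. In AsPC-1 experiment 1, 4 of 7 tested members were called (1 higher and 3 lower), against 25.9% of all genes, and the median log2 fold change was -0.26 over the members and 0.08 over all genes. In AsPC-1 experiment 3, 2 of 7 tested members were called (2 lower), against 27.8% of all genes, and the median log2 fold change was -0.22 over the members and 0.02 over all genes. In SUIT-2, it was 1 of 9 (1 higher) against 3.94%, with medians of 0.12 and 0.18. SUIT-2 had few genes called of any kind. In T3M-4 experiment 1, 4 of 10 were called (4 lower) against 5.72%, with medians of -1.11 and -0.22. In T3M-4 experiment 2, 4 of 10 were called (2 higher and 2 lower) against 34.6%, with medians of -0.03 and 0.10. T3M-4 thus differed between its experiments in how many genes were called at all. In BxPC-3 experiment 1, 5 of 10 were called (1 higher and 4 lower) against 16.2%, with medians of -0.61 and -0.02. In BxPC-3 experiment 2, 3 of 9 were called (1 higher and 2 lower) against 34.6%, with medians of -0.21 and 0.05. In CFPAC-1, 8 of 9 were called (1 higher and 7 lower) against 16.2%, with medians of -0.52 and -0.11. The share of higher genes among those called was 66.02% in AsPC-1 experiment 1 (52.7%), 74.6% in SUIT-2 (59.1%), 67.5% in T3M-4 experiment 2 (46.95%), 60.7% in BxPC-3 experiment 2 (50.3%) and 20.1% in CFPAC-1 (53.2%), with the share after scaling the libraries by the median of ratios in parentheses. Before scaling, the members' share most exceeded that of all genes in CFPAC-1 and was near it in AsPC-1 experiment 3. After scaling, CFPAC-1 had 1 higher and 4 lower.

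NRG1, the ligand of ERBB3, was measured as follows. T3M-4 experiment 1 gave 120.3 and 131 in sgRosa and 25.7, 41.4, 53.6 and 54.6 TPM in sgKLF5 (log2 fold change (log2FC) -1.55 ± 0.33 SE, q = 0.034). T3M-4 experiment 2 gave 66.9, 72.2, 79.6 and 83.3 in sgRosa and 42.6, 42.9, 42.97 and 47.3 TPM in sgKLF5 (log2FC -0.76 ± 0.12 SE, q = 8.0e-05). In both experiments every sgKLF5 library was below every sgRosa library. BxPC-3 experiment 1 gave 45.8 and 48.4 in sgRosa and 10.9, 13.1, 18.1 and 18.5 TPM in sgKLF5 (log2FC -1.61 ± 0.20 SE, q = 0.00044). BxPC-3 experiment 2 gave 49.4, 51.6, 58.2 and 58.98 in sgRosa and 26.4, 31.7, 33.9 and 40.9 TPM in sgKLF5 (log2FC -0.71 ± 0.11 SE, q = 8.6e-05). Here too the groups did not overlap, so that NRG1 was lower with KLF5 knockout in all 16 sgKLF5 libraries of the basal-like lines. SUIT-2 gave 0.785, 1.301, 1.304 and 1.32 in sgRosa and 6.57, 7.89, 12.8 and 12.9 TPM in sgKLF5 (log2FC 2.299 ± 0.25 SE, q = 0.0014). CFPAC-1 gave 17.1, 17.5, 20.7 and 31.3 in sgRosa and 28.8, 34.02 and 39.04 TPM in sgKLF5 (log2FC 0.66 ± 0.16 SE, q = 0.014). NRG1 started near 1 TPM in SUIT-2, where the sgKLF5 libraries were all above the controls, and the CFPAC-1 groups overlapped. AsPC-1 held too little NRG1 to be tested, at 0.1503 and 0.161 TPM (sgRosa) and 0.102 (lowest), 0.163 (median) and 3.56 TPM (highest) (sgKLF5) in experiment 1 and 0.0588, 0.06302, 0.0844 and 0.1198 TPM (sgRosa) and 0.0553, 0.127, 0.201 and 0.257 TPM (sgKLF5) in experiment 3.

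TGFA, a high-affinity ligand of EGFR, was measured in all 8 comparisons. T3M-4 experiment 1 had 96.6 and 103 in sgRosa and 6.83, 18.8, 21.6 and 21.8 TPM in sgKLF5 (log2FC -2.58 ± 0.44 SE, q = 0.016). T3M-4 experiment 2 had 36.3, 49.7, 61.5 and 64.7 in sgRosa and 33.3, 35.4, 35.8 and 37.5 TPM in sgKLF5 (log2FC -0.53 ± 0.13 SE, q = 0.0045). The fall in experiment 1 was wide and did not overlap the controls, with sgKLF5 replicate 2, the library lowest in long mRNAs, at the bottom (6.83 TPM), and the groups of experiment 2 overlapped. BxPC-3 experiment 1 had 69.3 and 75.1 in sgRosa and 25.5, 27.1, 33.4 and 36.5 TPM in sgKLF5 (log2FC -1.22 ± 0.14 SE, q = 0.00027). BxPC-3 experiment 2 had 69.8, 72.6, 73.01 and 78.1 in sgRosa and 55.5, 62.97, 65.8 and 68.4 TPM in sgKLF5 (log2FC -0.22 ± 0.11 SE, q = 0.14). The first was a fall without overlap, and the second did not pass the threshold. AsPC-1 experiment 1 had 36.6 and 41.01 in sgRosa and 18.8 (lowest), 24.3 (median) and 27.4 TPM (highest) in sgKLF5 (log2FC -0.71 ± 0.16 SE, q = 0.0078). AsPC-1 experiment 3 had 17.3, 17.6, 18.7 and 19.2 in sgRosa and 11.9, 11.95, 15.7 and 16.3 TPM in sgKLF5 (log2FC -0.37 ± 0.15 SE, q = 0.070). All sgKLF5 libraries were below the controls in both, but only the first passed. SUIT-2 had 36.2, 110.1, 122 and 125 in sgRosa and 62.1, 88.4, 88.4 and 90.5 TPM in sgKLF5 (log2FC -0.12 ± 0.37 SE, q = 0.89). CFPAC-1 had 67.8, 81.6, 92.3 and 95.5 in sgRosa and 53.2, 58.7 and 61.8 TPM in sgKLF5 (log2FC -0.52 ± 0.12 SE, q = 0.0092). SUIT-2 had an sgRosa library (replicate 1) far below the other 3, the same one that was low in long mRNAs, and CFPAC-1 showed a fall without overlap.

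HBEGF, the heparin-binding ligand, moved in opposite directions between the first and the later experiment of BxPC-3. BxPC-3 experiment 1 gave levels of 181 and 185 in sgRosa and 40.2, 49.2, 55.4 and 61.7 TPM in sgKLF5 (log2FC -1.82 ± 0.15 SE, q = 2.4e-05). BxPC-3 experiment 2 gave levels of 67.5, 79.5, 80.7 and 90.99 in sgRosa and 131, 141, 146 and 153 TPM in sgKLF5 (log2FC 0.84 ± 0.15 SE, q = 0.00026). Each was free of overlap, the first a fall and the second a rise. T3M-4 experiment 1 gave levels of 118 and 126 in sgRosa and 34.8, 50.95, 51.1 and 57.8 TPM in sgKLF5 (log2FC -1.33 ± 0.24 SE, q = 0.018). T3M-4 experiment 2 gave levels of 65.3, 67.9, 69.8 and 77.3 in sgRosa and 60.5, 63.96, 69.1 and 76.6 TPM in sgKLF5 (log2FC -0.06 ± 0.09 SE, q = 0.68). A fall without overlap in the first was followed by overlapping groups in the second. AsPC-1 experiment 1 gave levels of 18.9 and 24.03 in sgRosa and 34.5 (lowest), 38.9 (median) and 41.2 TPM (highest) in sgKLF5 (log2FC 0.81 ± 0.11 SE, q = 0.00031). AsPC-1 experiment 3 gave levels of 14.4, 14.7, 16.7 and 18.4 in sgRosa and 11.1, 14.997, 18.97 and 20.2 TPM in sgKLF5 (log2FC -0.0021 ± 0.14 SE, q = 0.99). AsPC-1 rose in experiment 1 with no overlap and overlapped in experiment 3. SUIT-2 gave levels of 12.1, 20.6, 35.6 and 40.3 in sgRosa and 28.3, 29.7, 33.2 and 35.3 TPM in sgKLF5 (log2FC 0.34 ± 0.34 SE, q = 0.65). CFPAC-1 gave levels of 35.8, 52.5, 53.9 and 66.96 in sgRosa and 28.4, 33.3 and 39.2 TPM in sgKLF5 (log2FC -0.60 ± 0.16 SE, q = 0.020). The SUIT-2 groups overlapped, and CFPAC-1 was called lower although 1 sgKLF5 library lay within the range of the controls.

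The difference between the experiments of a line was tested directly, as the log2 fold change of the later minus that of the earlier experiment. In BxPC-3 it passed for 6 of 9 members against 16.7% of all genes, namely ERBB2 (-0.59, q = 0.028), AREG (0.72, q = 0.0012), TGFA (1.01, q = 0.00043), HBEGF (2.66, q = 3.1e-08), BTC (0.81, q = 0.038) and NRG1 (0.89, q = 0.0058). In T3M-4 it passed for 4 of 10 against 17.4%, namely EGFR (2.07, q = 0.045), TGFA (2.05, q = 0.0020), HBEGF (1.28, q = 0.00089) and EPGN (1.51, q = 0.024), beside a median of 0.33 over all genes. In AsPC-1 it passed for 2 of 7 against 4.28%, namely ERBB3 (-0.72, q = 0.0054) and HBEGF (-0.81, q = 0.014). With single libraries left out, ERBB3 of AsPC-1 lost this call without sgRosa replicate 2 of experiment 1 (-0.60, q = 0.12) and HBEGF of AsPC-1 without sgRosa replicate 1 of experiment 1 (-0.65, q = 0.16). In T3M-4, EPGN lost it without sgRosa replicate 1 or 2 of experiment 1 (1.41 to 1.61, q = 0.077 to 0.13) and EGFR without any 1 of 18 libraries (1.78 to 2.15, q = 0.053 to 0.16), beside the library of experiment 1 that was lowest in long mRNAs. In BxPC-3, ERBB2 lost it without sgKLF5 replicate 1 or 2 of experiment 2, sgRosa replicate 1 of experiment 1 or sgRosa replicate 3 or 4 of experiment 2 (-0.56 to -0.48, q = 0.054 to 0.19) and BTC without any 1 of 9 libraries (0.71 to 0.84, q = 0.051 to 0.14). Among all genes that differed between experiments, the share higher in the later one was 16.3% in AsPC-1 (28.3%), 73.3% in T3M-4 (55.2%) and 61.4% in BxPC-3 (50.99%), with that after scaling in parentheses. HBEGF and TGFA of BxPC-3 and T3M-4 held in every case. The experiments differ in the number of control libraries, and why their effects differ was not tested.

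ERBB2 and AREG were the other members called in 4 of the 8 KLF5 comparisons. ERBB2 in AsPC-1 experiment 1 stood at 28.1 and 33.5 in sgRosa and 18.8 (lowest), 21.1 (median) and 21.9 TPM (highest) in sgKLF5 (log2FC -0.54 ± 0.10 SE, q = 0.0024). ERBB2 in AsPC-1 experiment 3 stood at 45.3, 46.9, 47.95 and 49.2 in sgRosa and 21.3, 23.2, 28.1 and 30.4 TPM in sgKLF5 (log2FC -0.87 ± 0.10 SE, q = 2.1e-06). AsPC-1 was thus lower in both experiments with no overlap. ERBB2 in BxPC-3 experiment 2 stood at 24.6, 28.3, 30.9 and 31.7 in sgRosa and 15.97, 16.4, 18.9 and 19.1 TPM in sgKLF5 (log2FC -0.68 ± 0.11 SE, q = 0.00017). ERBB2 in CFPAC-1 stood at 85.8, 89.6, 111 and 118 in sgRosa and 52.7, 66.01 and 69.9 TPM in sgKLF5 (log2FC -0.67 ± 0.12 SE, q = 0.0039). Both were falls without overlap. ERBB2 in SUIT-2 stood at 23.05, 60.7, 74.8 and 77.5 in sgRosa and 37.8, 46.2, 49.5 and 61.04 TPM in sgKLF5 (log2FC -0.16 ± 0.36 SE, q = 0.85). ERBB2 in T3M-4 experiment 1 stood at 28.6 and 30.8 in sgRosa and 16.6, 35.8, 40.5 and 41.9 TPM in sgKLF5 (log2FC 0.09 ± 0.40 SE, q = 0.89). The libraries of SUIT-2 and of T3M-4 experiment 1 overlapped and did not pass. ERBB2 in T3M-4 experiment 2 stood at 28.7, 42.6, 44.7 and 49.1 in sgRosa and 39.3, 39.8, 40.3 and 41.01 TPM in sgKLF5 (log2FC -0.01 ± 0.13 SE, q = 0.94). ERBB2 in BxPC-3 experiment 1 stood at 21.6 and 25.3 in sgRosa and 18.1, 22.4, 23.2 and 24.2 TPM in sgKLF5 (log2FC -0.09 ± 0.14 SE, q = 0.74). Neither passed, and in both the groups overlapped.

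AREG in T3M-4 experiment 1 stood at 670.4 and 706 in sgRosa and 297, 392, 397 and 403 TPM in sgKLF5 (log2FC -0.89 ± 0.17 SE, q = 0.022). AREG in BxPC-3 experiment 1 stood at 241 and 256 in sgRosa and 117, 121, 136 and 153 TPM in sgKLF5 (log2FC -0.92 ± 0.11 SE, q = 0.00023). In both first experiments of the basal-like lines all sgKLF5 libraries lay below the controls. AREG in T3M-4 experiment 2 stood at 254, 303, 365 and 379 in sgRosa and 234, 264, 272 and 273 TPM in sgKLF5 (log2FC -0.30 ± 0.12 SE, q = 0.066). AREG in BxPC-3 experiment 2 stood at 256, 268, 269.5 and 276 in sgRosa and 222, 228, 235 and 242 TPM in sgKLF5 (log2FC -0.21 ± 0.09 SE, q = 0.082). The later experiments of these lines did not pass. AREG in AsPC-1 experiment 1 stood at 161 and 167 in sgRosa and 124 (lowest), 136 (median) and 152 TPM (highest) in sgKLF5 (log2FC -0.26 ± 0.09 SE, q = 0.049). AREG in CFPAC-1 stood at 271, 309, 318 and 360.3 in sgRosa and 242, 264 and 269 TPM in sgKLF5 (log2FC -0.28 ± 0.09 SE, q = 0.038). These were small falls, with no overlap. AREG in AsPC-1 experiment 3 stood at 34.5, 35.1, 37.7 and 39.3 in sgRosa and 29.3, 40.6, 48.5 and 49.98 TPM in sgKLF5 (log2FC 0.17 ± 0.15 SE, q = 0.45). AREG in SUIT-2 stood at 149.9, 262, 307 and 315 in sgRosa and 186, 262, 269 and 308 TPM in sgKLF5 (log2FC 0.02 ± 0.25 SE, q = 0.97). Neither of these was called.

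EPGN, a weak ligand of EGFR, read 7.92, 9.04, 9.51 and 10.02 in sgRosa and 20.8, 24.7, 26.4 and 26.8 TPM in the sgKLF5 libraries of T3M-4 experiment 2 (log2FC 1.34 ± 0.12 SE, q = 9.9e-08). Every sgKLF5 library was above every control. It was also called higher in BxPC-3 experiment 1 (0.86, q = 0.024), at 0.3796 and 0.3897 in sgRosa and 1.06, 1.32, 1.77 and 2.05 TPM in sgKLF5, but not in T3M-4 experiment 1 (-0.17, q = 0.84). ERBB3 was lower in AsPC-1 experiment 3 (-0.98, q = 8.7e-07) and CFPAC-1 (-0.55, q = 0.020) and higher in T3M-4 experiment 2 (0.48, q = 0.0028). EREG was lower in CFPAC-1 (-0.51, q = 0.0090), and BTC was not called in any of the 6 comparisons in which it was tested. EGFR was called once, lower in CFPAC-1 (-0.82, q = 0.041), where the median over genes with long transcripts was -0.27 and that over short ones 0.04. Its log2 fold change of -1.64 in T3M-4 experiment 1 (q = 0.22) came with 162 and 165 in sgRosa and 14.4, 45.7, 92.4 and 113 TPM in sgKLF5, and with medians of -0.72 over long and 0.17 over short transcripts. The part of these medians in the EGFR values was not tested.

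**Figure D3:**
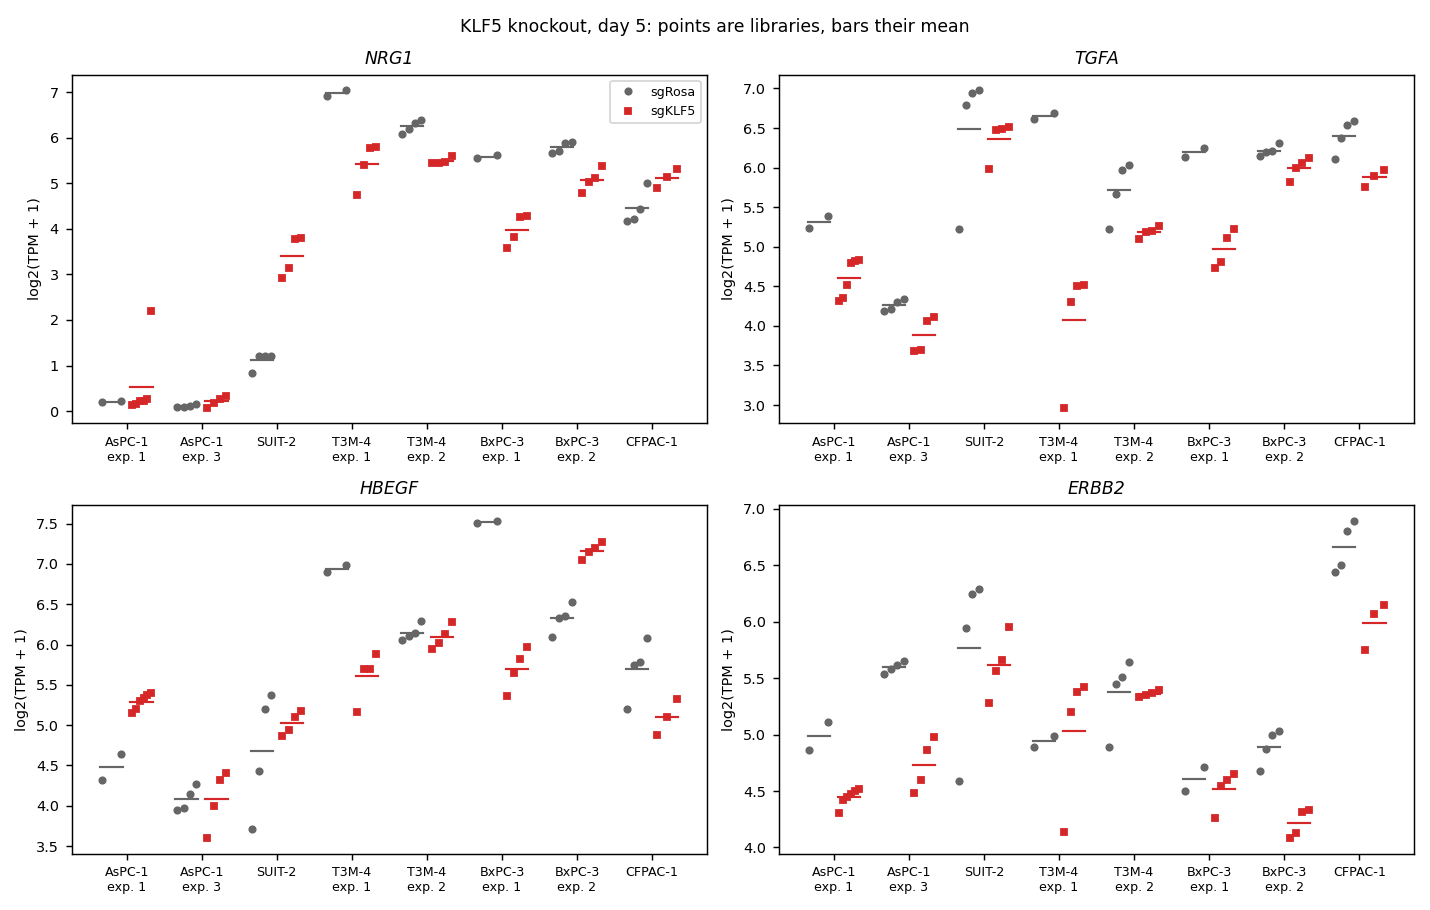
NRG1, TGFA, HBEGF and ERBB2 in the 8 KLF5 knockout comparisons, on log2(TPM + 1). Grey circles are sgRosa and red squares sgKLF5 libraries, and bars are group means. NRG1 falls in T3M-4 and BxPC-3 and rises in SUIT-2, and HBEGF falls in experiment 1 and rises in experiment 2 of BxPC-3.

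The libraries low in long mRNAs were left out in turn. Without T3M-4 sgKLF5 experiment 1 replicate 2, 5 of 10 members were called in T3M-4 experiment 1 in place of 4, and 37.0% of all genes. EREG joined the calls (-1.32, q = 0.0010), and TGFA (-2.21, q = 7.9e-06), HBEGF (-1.18, q = 0.00023), NRG1 (-1.32, q = 0.00066) and AREG (-0.79, q = 0.00026) were smaller in size with lower adjusted p, while EGFR moved to -1.05, q = 0.074. Without SUIT-2 sgRosa replicate 1, NRG1 was still the 1 member called in SUIT-2 (2.21, q = 0.0020, 9.82% of all genes), TGFA stood at -0.54, q = 0.057, ERBB2 at -0.55, q = 0.092 and EGFR at -0.46, q = 0.22. Without BxPC-3 sgKLF5 experiment 1 replicate 3, 5 of 9 were called (16.9% of all genes), with ERBB3 higher (0.48, q = 0.018) and EPGN too low to be tested. The falls of NRG1, TGFA, HBEGF and AREG in both first experiments were thus present without these libraries.

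With each library left out in turn, 14 of the 31 KLF5 calls were lost in at least 1 case and none was reversed, and the log2 fold changes and adjusted p without those libraries follow. ERBB2 in AsPC-1 experiment 1 lost its call without sgRosa replicate 1 (-0.42, q = 0.051). AREG in AsPC-1 experiment 1 lost it without sgRosa replicate 1 or 2 or sgKLF5 replicate 3, 5 or 6 (-0.29 to -0.23, q = 0.072 to 0.22). TGFA in AsPC-1 experiment 1 lost it without sgRosa replicate 1 (-0.63, q = 0.081). HBEGF, the largest call of AsPC-1 experiment 1, was not among these. AREG in T3M-4 experiment 1 lost it without sgKLF5 replicate 1 or 3 or sgRosa replicate 1 or 2 (-0.94 to -0.86, q = 0.052 to 0.27). TGFA in T3M-4 experiment 1 lost it without sgKLF5 replicate 1 or sgRosa replicate 1 or 2 (-2.66 to -2.54, q = 0.051 to 0.19). HBEGF in T3M-4 experiment 1 lost it without sgRosa replicate 1 or 2 (-1.38 to -1.29, q = 0.20 to 0.22). NRG1 in T3M-4 experiment 1 lost it without sgKLF5 replicate 1 or 3, sgRosa replicate 1 or 2 or sgRPA3 replicate 1 or 2 (-1.67 to -1.49, q = 0.052 to 0.31). All 4 calls of T3M-4 experiment 1 are among these, in a comparison with 2 control libraries. EPGN in BxPC-3 experiment 1 lost it without sgRosa replicate 1 or 2 (0.86 to 0.87, q = 0.15 to 0.16). EGFR in CFPAC-1 lost it without sgCDK1 replicate 1 or 2, sgKLF5 replicate 1, 2 or 3, sgRosa replicate 1 or 3, sgRPA3 replicate 1 or 2 or sgRUVBL2 replicate 1 or 2 (-0.92 to -0.70, q = 0.051 to 0.16). ERBB3 in CFPAC-1 lost it without sgKLF5 replicate 1 or 2 or sgRosa replicate 1 or 3 (-0.56 to -0.51, q = 0.054 to 0.079). The receptors of CFPAC-1, ERBB2 excepted, lost their calls in some of these cases. AREG in CFPAC-1 lost it without sgCDK1 replicate 1 or 2, sgKLF5 replicate 1, 2 or 3, sgRosa replicate 1 or 3 or sgRPA3 replicate 1 or 2 (-0.31 to -0.21, q = 0.051 to 0.14). TGFA in CFPAC-1 lost it without sgKLF5 replicate 1 (-0.47, q = 0.053). HBEGF in CFPAC-1 lost it without sgKLF5 replicate 1 or 3 or sgRosa replicate 1 or 3 (-0.60 to -0.47, q = 0.060 to 0.091). NRG1 in CFPAC-1 lost it without sgKLF5 replicate 2 or sgRosa replicate 1 or 3 (0.55 to 0.57, q = 0.052 to 0.070). NRG1 in SUIT-2 and in both later experiments of the basal-like lines kept its call without any 1 library.

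RUVBL1 knockout was measured in 5 comparisons and RUVBL2 knockout in 4, to set the loss of the ATPases beside that of KLF5. AREG, EREG and TGFA rose in AsPC-1 with either knockout, while ERBB3 and ERBB2 fell there, with ERBB2 not called in experiment 2. In T3M-4, ERBB2, ERBB3, TGFA and HBEGF rose and NRG1 and EPGN fell with either knockout. CFPAC-1 had no member called higher, and EREG was lower there with both. AsPC-1 experiment 2 gave 6 of 7 members called (4 higher and 2 lower) with sgRUVBL1, against 55.8% of all genes, and medians of 0.35 over the members and 0.02 over all genes. AsPC-1 experiment 3 gave 5 of 7 (3 higher and 2 lower) against 51.9% (medians 0.33 and 0.16). T3M-4 gave 9 of 10 (7 higher and 2 lower) against 60.5% (medians 0.56 and 0.25). In these the share of all genes called was itself high, at over 50%. BxPC-3 gave 5 of 9 (4 higher and 1 lower) against 16% (medians 0.09 and 0.01). CFPAC-1 gave 4 of 9 (4 lower) against 43.8% (medians -0.30 and -0.20). BxPC-3 had the widest margin between the members' share and that of all genes. With sgRUVBL2, AsPC-1 had 5 of 7 (3 higher and 2 lower) against 43.2% (medians 0.26 and 0.13). T3M-4 then had 6 of 10 (4 higher and 2 lower) against 54.5% (medians 0.32 and 0.19). BxPC-3 then had 1 of 9 (1 higher) against 9.76% (medians 0.10 and -0.06). The members stood near the share of all genes in T3M-4 and BxPC-3. CFPAC-1 then had 1 of 9 (1 lower) against 12.1% (medians -0.15 and -0.09). The share of higher genes among those called with sgRUVBL1 was 70.6% in AsPC-1 experiment 3 (49.6%), 75.9% in T3M-4 (50.5%) and 14.9% in CFPAC-1 (51.6%), with that after scaling in parentheses. With sgRUVBL2 it was 74.5% in AsPC-1 (48.9%), 72.1% in T3M-4 (50.02%) and 23.4% in CFPAC-1 (45.9%). After scaling, CFPAC-1 had 0 members higher and 3 lower with sgRUVBL1, and 0 higher and 1 lower with sgRUVBL2.

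In AsPC-1 the changes of EREG and AREG passed 1 on the log2 scale. EREG in experiment 3 read 12.9, 14.005, 17.1 and 17.3 in sgRosa and 29.9, 33.2, 41.8 and 43.7 TPM in sgRUVBL1 (log2FC 1.22 ± 0.17 SE, q = 1.2e-05). The sgRUVBL2 libraries read 30.6, 38.9998, 39.2 and 42.7 TPM (log2FC 1.25 ± 0.17 SE, q = 2.1e-05). Both knockouts were above all controls. AREG read 34.5, 35.1, 37.7 and 39.3 in sgRosa and 69.9, 74.8, 105 and 112 TPM in sgRUVBL1 (log2FC 1.25 ± 0.15 SE, q = 3.1e-06). With sgRUVBL2 it read 57.8, 66.4, 70.6 and 73.8 TPM (log2FC 0.85 ± 0.15 SE, q = 0.00025). Neither group overlapped the controls. In experiment 2, sgRUVBL1 gave smaller rises of AREG (0.66, q = 2.2e-06) and EREG (0.35, q = 0.012) and one of HBEGF (0.84, q = 2.6e-06). The log2 fold change of experiment 3 minus that of experiment 2 was 0.59, q = 0.028 for AREG, 0.86, q = 0.0073 for EREG and -0.51, q = 0.044 for HBEGF, the 3 of 7 members that differed, while 18.2% of all genes did. The AREG difference was lost without sgRUVBL1 replicate 1 of experiment 2, sgRUVBL1 replicate 1 or 2 of experiment 3, sgRosa replicate 3 of experiment 2 or sgRosa replicate 4 of experiment 3 (0.48 to 0.56, q = 0.058 to 0.081) and that of HBEGF without any 1 of 16 libraries (-0.53 to -0.45, q = 0.0502 to 0.11), while that of EREG held. Of all genes that differed, the share that was higher was 76.6% in experiment 3 (47.5%), with the share after scaling in parentheses. TGFA rose in both experiments with sgRUVBL1 (0.56, q = 5.1e-05 and 0.69, q = 0.00081) and with sgRUVBL2 (0.62, q = 0.0025). Of the receptors, ERBB3 fell with sgRUVBL1 in experiment 2 (-0.88, q = 2.0e-05) and experiment 3 (-0.88, q = 3.2e-06) and with sgRUVBL2 (-0.57, q = 0.00038). ERBB2 fell slightly in experiment 3 with sgRUVBL1 (-0.30, q = 0.018) and sgRUVBL2 (-0.29, q = 0.027), and EGFR was called in experiment 2 alone (-0.73, q = 0.018), where the medians over long and short transcripts were -0.14 and 0.10.

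T3M-4 was the line with the most members called. ERBB3 stood at 30.6, 36.2, 38.1 and 48.1 in sgRosa and 88.05, 91.7 and 104 TPM in sgRUVBL1 (log2FC 1.297 ± 0.12 SE, q = 1.6e-07). The sgRUVBL2 libraries stood at 71.4, 77.8, 87.9 and 92.3 TPM (log2FC 1.098 ± 0.11 SE, q = 4.2e-07). ERBB3 thus rose in T3M-4 with the knockouts with which it fell in AsPC-1, and no library overlapped the controls. HBEGF stood at 65.3, 67.9, 69.8 and 77.3 in sgRosa and 166, 167 and 193 TPM in sgRUVBL1 (log2FC 1.31 ± 0.10 SE, q = 2.7e-08). With sgRUVBL2 it stood at 129, 143, 172 and 174 TPM (log2FC 1.12 ± 0.09 SE, q = 5.5e-08). Both groups were above all sgRosa libraries. TGFA stood at 36.3, 49.7, 61.5 and 64.7 in sgRosa and 97.4, 99.4 and 123 TPM in sgRUVBL1 (log2FC 1.02 ± 0.14 SE, q = 1.3e-05). Its sgRUVBL2 value was smaller in change (0.68, q = 0.00036). NRG1 stood at 66.9, 72.2, 79.6 and 83.3 in sgRosa and 32.5, 34.4 and 36.4 TPM in sgRUVBL1 (log2FC -1.11 ± 0.13 SE, q = 2.0e-06). All knockout libraries were below the controls in NRG1 and above them in TGFA. NRG1 read 23.9, 30.5, 37.4 and 40.96 TPM with sgRUVBL2 (log2FC -1.18 ± 0.12 SE, q = 4.1e-07). Smaller calls with sgRUVBL1 were EREG (0.94, q = 0.0031), ERBB2 (0.54, q = 0.0026), AREG (0.44, q = 0.0092), BTC (0.32, q = 0.029) and EPGN (-0.31, q = 0.045), and with sgRUVBL2 ERBB2 (0.54, q = 0.0016) and EPGN (-0.55, q = 0.0010). The medians of all genes, 0.25 and 0.19, were above 0 in both.

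BxPC-3 had smaller changes, and with sgRUVBL1, TGFA (0.49, q = 0.0059), HBEGF (0.52, q = 0.022), ERBB3 (0.39, q = 0.033) and AREG (0.27, q = 0.043) were higher and BTC (-0.59, q = 0.022) lower, and with sgRUVBL2 AREG alone was called (0.38, q = 0.020). NRG1 was not called in BxPC-3, at a log2 fold change of -0.08 ± 0.11 SE (sgRUVBL1) and -0.01 ± 0.12 SE (sgRUVBL2). EGFR in CFPAC-1 read 54.1, 59.5, 70.6 and 71.7 in sgRosa and 14.4, 21.5, 37.97 and 44.3 TPM in sgRUVBL1 (log2FC -1.21 ± 0.24 SE, q = 0.00097). All sgRUVBL1 libraries were below the controls, beside medians of -0.44 over long and 0.0033 over short transcripts, and the part of these in the EGFR value was not tested. CFPAC-1 also fell in NRG1 (-0.84, q = 0.00047), EREG (-0.68, q = 0.00017) and ERBB2 (-0.48, q = 0.0022) with sgRUVBL1, and in EREG with sgRUVBL2 (-0.75, q = 0.0038), with 2 sgRUVBL2 libraries.

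Whether an effect differed among AsPC-1 experiment 3, T3M-4 experiment 2, BxPC-3 experiment 2 and CFPAC-1 was tested with 1 F test per gene and knockout. It passed for 10 of 10 members with sgRUVBL1 (73.8% of all genes), 8 with sgRUVBL2 (58.4%) and 8 with sgKLF5 (57.3%). ERBB3 spanned the widest range among the lines with sgRUVBL1, 2.17 on the log2 scale from its lowest to its highest effect (q = 2.7e-13), from a fall in AsPC-1 to a rise in T3M-4. NRG1 had the smallest adjusted p with sgKLF5 (3.7e-10, range 1.42), and EREG the widest range with sgRUVBL2 (2.003, q = 4.3e-06). AREG and TGFA did not pass with sgKLF5 (q = 0.060 and 0.37), nor EGFR and BTC with sgRUVBL2 (q = 0.14 and 0.15). Without single libraries, EREG with sgKLF5 and TGFA with sgRUVBL2 lost the call without 53 and 50 of the 75 libraries (adjusted p up to 0.097 and 0.13). With sgKLF5, EGFR lost it without CFPAC-1 sgKLF5 replicate 1 or T3M-4 sgRosa replicate 4 of experiment 2 (0.95 to 1.13, q = 0.056 to 0.10) and BTC without CFPAC-1 sgKLF5 replicate 1 (0.57, q = 0.055), and with sgRUVBL1 EPGN did without AsPC-1 sgRUVBL1 replicate 1 of experiment 3 (0.82, q = 0.075), where the first value is the range among the lines.

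With each library left out in turn, 9 of the 29 RUVBL1 calls and 2 of the 13 RUVBL2 calls were lost in at least 1 case. EGFR in AsPC-1 experiment 2 lost its call without sgRosa replicate 3 or 4 or sgRUVBL1 replicate 1 (-0.65 to -0.60, q = 0.051 to 0.064). ERBB2 in AsPC-1 experiment 3 lost it without sgRUVBL1 replicate 2 or 4 (-0.28 to -0.26, q = 0.051 to 0.052). The AsPC-1 ligands kept their calls in every case. AREG in T3M-4 experiment 2 lost it without sgRUVBL1 replicate 2 (0.37, q = 0.055). BTC in T3M-4 experiment 2 lost it without sgRosa replicate 1 or 4 or sgRUVBL1 replicate 1 or 3 (0.27 to 0.30, q = 0.0503 to 0.11). EPGN in T3M-4 experiment 2 lost it without sgKLF5 replicate 1, 3 or 4, sgRosa replicate 1, 3 or 4, sgRPA3 replicate 1 or sgRUVBL1 replicate 1, 2 or 3 (-0.33 to -0.27, q = 0.05005 to 0.10). Those 3 ligands of T3M-4 are its smallest calls. ERBB3 in BxPC-3 experiment 2 lost it without sgRosa replicate 1 or 2 or sgRUVBL1 replicate 1, 2 or 4 (0.30 to 0.41, q = 0.059 to 0.12). AREG in BxPC-3 experiment 2 lost it without sgCDK1 replicate 1 or 2, sgKLF5 replicate 1, 2, 3 or 4, sgRosa replicate 1, 2, 3 or 4, sgRPA3 replicate 1 or 2 or sgRUVBL1 replicate 1 or 2 (0.20 to 0.29, q = 0.052 to 0.16). HBEGF in BxPC-3 experiment 2 lost it without sgRosa replicate 4 or sgRUVBL1 replicate 1 or 2 (0.37 to 0.45, q = 0.067 to 0.085). BTC in BxPC-3 experiment 2 lost it without sgRosa replicate 1 or sgRUVBL1 replicate 1 or 2 (-0.54 to -0.47, q = 0.071 to 0.079). These 4 leave TGFA as the BxPC-3 call that held throughout. With sgRUVBL2, ERBB2 in AsPC-1 experiment 3 lost its call without sgRosa replicate 1, 2 or 4 or sgRUVBL2 replicate 2 (-0.29 to -0.21, q = 0.0501 to 0.088). AREG in BxPC-3 experiment 2 lost it without sgRosa replicate 2 (0.36, q = 0.056). None of the lost calls has a log2 fold change of 1 or more.

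Knockouts of CDK1, the kinase that drives mitosis, and RPA3, a subunit of the replication protein A complex, were set against sgRosa in 10 comparisons of 2 knockout libraries each. ERBB2 and ERBB3 rose with sgRPA3 in T3M-4 experiment 2, BxPC-3 experiment 2 and CFPAC-1, and AREG fell in the former pair while it rose in AsPC-1. The sgCDK1 libraries of AsPC-1 gave 1 of 7 members called (1 higher) against 16.7% of all genes (medians -0.05 and 0.04). The sgCDK1 libraries of T3M-4 experiment 2 gave 2 of 10 (2 higher) against 16.8% (medians 0.22 and 0.15). The sgCDK1 libraries of BxPC-3 experiment 2 gave 2 of 9 (2 lower) against 5.82% (medians -0.26 and -0.01). The sgCDK1 libraries of CFPAC-1 gave 0 of 9 against 0.00% by limma (medians 0.22 and 0.07), with 4 members at an unadjusted p under 0.05. Over all genes, 1477 had an unadjusted p under 0.05 there, and no more than 2 members were called with sgCDK1 in any line. The sgRPA3 libraries of AsPC-1 gave 3 of 7 (3 higher) against 0.654% (medians 0.41 and 0.07). The sgRPA3 libraries of T3M-4 experiment 1 gave 0 of 10 against 0.00% by limma (medians -0.46 and -0.04), with 1 at an unadjusted p under 0.05. In that comparison, 189 of all genes had an unadjusted p under 0.05. Those of T3M-4 experiment 2 gave 7 of 10 (2 higher and 5 lower) against 24.6% (medians -0.41 and 0.15). Those of BxPC-3 experiment 1 gave 0 of 10 against 0.307% by limma (medians -0.04 and -0.13), with 2 at an unadjusted p under 0.05. Those of BxPC-3 experiment 2 gave 4 of 9 (2 higher and 2 lower) against 20.8% (medians -0.26 and 0.02). T3M-4 experiment 2 had the most members called of these. Those of CFPAC-1 gave 2 of 9 (2 higher) against 11.6% (medians 0.06 and 0.08). The share of higher genes among those called was 77.1% in T3M-4 with sgCDK1 (47.4%), 74.8% in T3M-4 experiment 2 with sgRPA3 (46.3%) and 70.7% in CFPAC-1 with sgRPA3 (43.4%), with that after scaling in parentheses.

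In AsPC-1, TGFA read 17.3, 17.6, 18.7 and 19.2 in sgRosa and 33.9 and 43.1 TPM in sgCDK1 (log2FC 1.03 ± 0.18 SE, q = 0.00064). AREG read 34.5, 35.1, 37.7 and 39.3 in sgRosa and 110.3 and 127 TPM in sgRPA3 (log2FC 1.67 ± 0.19 SE, q = 5.9e-05). EREG read 12.9, 14.005, 17.1 and 17.3 in sgRosa and 37.6 and 39.4 TPM in sgRPA3 (log2FC 1.28 ± 0.21 SE, q = 0.0027). None of these groups overlapped its controls. HBEGF was higher with sgRPA3 as well (0.97, q = 0.0073), in a comparison in which few genes were called. In T3M-4 experiment 2, sgRPA3 came with falls of EPGN (-0.95, q = 0.00027), AREG (-0.94, q = 0.00040), TGFA (-0.74, q = 0.0038), NRG1 (-0.58, q = 0.0097) and HBEGF (-0.41, q = 0.017) and rises of ERBB3 (0.88, q = 0.00028) and ERBB2 (0.46, q = 0.039), and sgCDK1 with rises of ERBB3 (0.76, q = 0.0015) and BTC (0.52, q = 0.017). BxPC-3 experiment 2 had ERBB3 (0.71, q = 0.0023) and ERBB2 (0.61, q = 0.0050) higher and AREG (-0.60, q = 0.0011) and NRG1 (-0.54, q = 0.0094) lower with sgRPA3, and EREG (-0.85, q = 0.027) and AREG (-0.40, q = 0.034) lower with sgCDK1. CFPAC-1 had ERBB3 (0.67, q = 0.016) and ERBB2 (0.53, q = 0.016) higher with sgRPA3.

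With 2 libraries per knockout, 12 of these 21 calls were lost without 1 library. EREG in AsPC-1 experiment 3 sgRPA3 lost its call without sgRPA3 replicate 1 or 2 (1.25 to 1.32, q = 0.057 to 0.14). HBEGF in AsPC-1 experiment 3 sgRPA3 lost it without sgRPA3 replicate 1 or 2 (0.96 to 0.97, q = 0.13 to 0.21). BTC in T3M-4 experiment 2 sgCDK1 lost it without sgCDK1 replicate 2 (0.34, q = 0.23). The AREG call of AsPC-1 held. ERBB2 in T3M-4 experiment 2 sgRPA3 lost it without sgRosa replicate 1 or 4 or sgRPA3 replicate 1 or 2 (0.29 to 0.59, q = 0.051 to 0.27). HBEGF in T3M-4 experiment 2 sgRPA3 lost it without sgRPA3 replicate 1 or 2 (-0.46 to -0.37, q = 0.071 to 0.11). NRG1 in T3M-4 experiment 2 sgRPA3 lost it without sgRPA3 replicate 2 (-0.50, q = 0.11). AREG, EPGN and TGFA were the ligands of T3M-4 whose fall held. AREG in BxPC-3 experiment 2 sgCDK1 lost it without sgCDK1 replicate 1 or 2 or sgRosa replicate 1, 3 or 4 (-0.45 to -0.35, q = 0.056 to 0.26). EREG in BxPC-3 experiment 2 sgCDK1 lost it without sgCDK1 replicate 1 or 2 or sgRosa replicate 1 or 3 (-0.89 to -0.81, q = 0.051 to 0.21). ERBB2 in BxPC-3 experiment 2 sgRPA3 lost it without sgRPA3 replicate 1 (0.60, q = 0.068). ERBB3 and AREG with sgRPA3 held in BxPC-3. NRG1 in BxPC-3 experiment 2 sgRPA3 lost it without sgRPA3 replicate 1 (-0.47, q = 0.13). ERBB2 in CFPAC-1 sgRPA3 lost it without sgRPA3 replicate 1 or 2 (0.53 to 0.54, q = 0.12 to 0.14). ERBB3 in CFPAC-1 sgRPA3 lost it without sgRPA3 replicate 1 or 2 (0.62 to 0.72, q = 0.096 to 0.17). No call of CFPAC-1 held in all cases.

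The KLF5, RUVBL1 and RUVBL2 knockouts were next compared with the mean of the sgCDK1 and sgRPA3 groups of the same experiment, targets that dividing cells need, with 1 sgRNA each. CDK1 mRNA itself was not called in AsPC-1 (q = 0.20) and CFPAC-1 (q = 0.68), nor RPA3 mRNA in AsPC-1 (q = 0.066) and CFPAC-1 (q = 0.25). With KLF5 knockout, ERBB2 and ERBB3 were lower than in these knockouts in all 4 lines. Against sgRosa, sgRPA3 raised both in all but AsPC-1, and in T3M-4 sgKLF5 raised ERBB3 and lowered neither. For sgKLF5 in AsPC-1 experiment 3, 5 of 7 members passed (5 lower) against 34.7% of all genes (medians -0.64 and -0.03), namely ERBB2 (-0.88, q = 1.6e-06), ERBB3 (-0.96, q = 1.1e-06), AREG (-0.64, q = 0.0028), EREG (-0.55, q = 0.017) and TGFA (-1.09, q = 1.1e-05). For sgKLF5 in T3M-4 experiment 2, 3 of 10 passed (1 higher and 2 lower) against 28.4% (medians -0.16 and -0.03), namely ERBB2 (-0.43, q = 0.015), ERBB3 (-0.35, q = 0.026) and EPGN (1.77, q = 3.5e-09). For sgKLF5 in BxPC-3 experiment 2, 6 of 9 passed (4 higher and 2 lower) against 46.8% (medians 0.05 and 0.05), namely ERBB2 (-0.99, q = 1.9e-06), ERBB3 (-0.41, q = 0.0093), AREG (0.29, q = 0.011), EREG (0.73, q = 0.0026), HBEGF (0.83, q = 0.00015) and BTC (0.53, q = 0.014). For sgKLF5 in CFPAC-1, 9 of 9 passed (1 higher and 8 lower) against 43.7% (medians -0.76 and -0.18), namely EGFR (-0.94, q = 0.0077), ERBB2 (-1.11, q = 7.8e-06), ERBB3 (-1.08, q = 3.8e-05), AREG (-0.40, q = 0.0015), EREG (-0.58, q = 0.00077), TGFA (-0.76, q = 0.00012), HBEGF (-0.78, q = 0.0010), BTC (-0.63, q = 0.0018) and NRG1 (0.94, q = 0.00025). The CFPAC-1 values of ERBB2 were 52.7, 66.01 and 69.9 TPM with sgKLF5, 125 and 131 TPM with sgCDK1 and 145 and 146 TPM with sgRPA3, and those of ERBB3 15.8, 17.01 and 17.3 TPM, 31.2 and 35.3 TPM and 38.9 and 41.6 TPM. The sgKLF5 libraries lay below both other groups in each. EPGN in T3M-4 experiment 2 read 20.8, 24.7, 26.4 and 26.8 TPM with sgKLF5 against 8.67 and 10.96 TPM with sgCDK1 and 3.96 and 4.48 TPM with sgRPA3, and TGFA in AsPC-1 experiment 3 11.9, 11.95, 15.7 and 16.3 TPM against 33.9 and 43.1 TPM and 23.3 and 25.9 TPM. Again the sgKLF5 groups lay outside both others. The share of higher genes among those called against CDK1 and RPA3 knockouts was 22.1% in CFPAC-1 with sgKLF5 (52.3%), 13.96% in CFPAC-1 with sgRUVBL1 (51.2%), 13.1% in CFPAC-1 with sgRUVBL2 (49.7%), 62.7% in AsPC-1 with sgRUVBL1 (48.3%), 64.8% in AsPC-1 with sgRUVBL2 (47.8%) and 64.6% in T3M-4 with sgRUVBL1 (49.5%), with that after scaling in parentheses.

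In T3M-4, TGFA and HBEGF were higher with RUVBL1 and with RUVBL2 knockout than in these knockouts by more than 1 on the log2 scale, and in AsPC-1 EREG was higher. sgRUVBL1 in AsPC-1 experiment 3 gave 4 of 7 (2 higher and 2 lower) against 51.2% (medians -0.03 and 0.09), namely ERBB2 (-0.32, q = 0.014), ERBB3 (-0.86, q = 3.8e-06), AREG (0.44, q = 0.021) and EREG (0.57, q = 0.0086). sgRUVBL1 in T3M-4 experiment 2 gave 6 of 10 (5 higher and 1 lower) against 41.8% (medians 0.30 and 0.09), namely ERBB3 (0.47, q = 0.0045), AREG (0.95, q = 3.0e-05), EREG (0.96, q = 0.0040), TGFA (1.36, q = 1.7e-06), HBEGF (1.47, q = 1.8e-08) and NRG1 (-0.65, q = 0.00076). sgRUVBL1 in BxPC-3 experiment 2 gave 5 of 9 (5 higher) against 20.4% (medians 0.38 and 0.0027), namely AREG (0.77, q = 1.9e-05), EREG (0.54, q = 0.038), TGFA (0.76, q = 0.00014), HBEGF (0.52, q = 0.019) and NRG1 (0.38, q = 0.023). sgRUVBL1 in CFPAC-1 gave 6 of 9 (6 lower) against 55.4% (medians -0.65 and -0.28), namely EGFR (-1.33, q = 0.00024), ERBB2 (-0.92, q = 7.9e-06), ERBB3 (-0.66, q = 0.00064), EREG (-0.75, q = 2.9e-05), BTC (-0.65, q = 0.00055) and NRG1 (-0.55, q = 0.0051). AREG and EREG were higher in BxPC-3, T3M-4 and AsPC-1 and EREG lower in CFPAC-1. sgRUVBL2 in AsPC-1 experiment 3 gave 3 of 7 (1 higher and 2 lower) against 42.1% (medians -0.05 and 0.08), namely ERBB2 (-0.30, q = 0.022), ERBB3 (-0.55, q = 0.00056) and EREG (0.61, q = 0.0077). sgRUVBL2 in T3M-4 experiment 2 gave 4 of 10 (3 higher and 1 lower) against 38.2% (medians 0.20 and 0.02), namely AREG (0.71, q = 0.00024), TGFA (1.02, q = 1.6e-05), HBEGF (1.28, q = 4.3e-08) and NRG1 (-0.72, q = 0.00017). sgRUVBL2 in BxPC-3 experiment 2 gave 4 of 9 (3 higher and 1 lower) against 20.7% (medians 0.44 and -0.06), namely ERBB2 (-0.46, q = 0.014), AREG (0.88, q = 4.0e-05), TGFA (0.61, q = 0.0022) and NRG1 (0.45, q = 0.015). sgRUVBL2 in CFPAC-1 gave 2 of 9 (2 lower) against 23.8% (medians -0.24 and -0.14), namely ERBB2 (-0.64, q = 0.0027) and EREG (-0.82, q = 0.00057). EREG rose in AsPC-1 and fell in CFPAC-1 against these knockouts with either ATPase knocked out. HBEGF in T3M-4 read 74.4 and 75.4 TPM with sgCDK1 and 50.7 and 53.99 TPM with sgRPA3, and TGFA 52.6 and 55.7 TPM and 30.02 and 31.2 TPM, below every sgRUVBL1 and sgRUVBL2 library. EGFR in CFPAC-1 read 70.1 and 74.4 TPM with sgCDK1 and 62.2 and 70.8 TPM with sgRPA3, above every sgRUVBL1 library. Without 1 library, 11 of the 57 calls were lost, none of them with a difference of 1 or more.

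The 11 calls lost were these. EREG in AsPC-1 experiment 3 sgKLF5 lost its call without sgCDK1 replicate 1, sgKLF5 replicate 1 or 4 or sgRPA3 replicate 1 (-0.53 to -0.39, q = 0.052 to 0.078). AREG in AsPC-1 experiment 3 sgRUVBL1 lost it without sgCDK1 replicate 1, sgRPA3 replicate 2 or sgRUVBL1 replicate 1 or 2 (0.33 to 0.43, q = 0.052 to 0.093). ERBB2 in AsPC-1 experiment 3 sgRUVBL2 lost it without sgCDK1 replicate 2, sgRPA3 replicate 1 or sgRUVBL2 replicate 2 (-0.28 to -0.22, q = 0.069 to 0.075). All 3 are in AsPC-1. ERBB2 in T3M-4 experiment 2 sgKLF5 lost it without sgCDK1 replicate 1 or sgRPA3 replicate 1 (-0.37 to -0.36, q = 0.063 to 0.069). ERBB3 in T3M-4 experiment 2 sgKLF5 lost it without sgCDK1 replicate 1, sgKLF5 replicate 1, 3 or 4 or sgRPA3 replicate 1 or 2 (-0.35 to -0.30, q = 0.0503 to 0.093). BTC in BxPC-3 experiment 2 sgKLF5 lost it without sgKLF5 replicate 2 (0.46, q = 0.0502). EPGN with sgKLF5 in T3M-4 held. EREG in BxPC-3 experiment 2 sgRUVBL1 lost it without sgCDK1 replicate 1 or 2, sgRPA3 replicate 1 or 2 or sgRUVBL1 replicate 1, 2 or 4 (0.49 to 0.57, q = 0.073 to 0.11). HBEGF in BxPC-3 experiment 2 sgRUVBL1 lost it without sgCDK1 replicate 1, sgRPA3 replicate 1 or sgRUVBL1 replicate 1 or 2 (0.36 to 0.50, q = 0.058 to 0.076). NRG1 in BxPC-3 experiment 2 sgRUVBL1 lost it without sgCDK1 replicate 2, sgRPA3 replicate 1 or sgRUVBL1 replicate 1 or 2 (0.33 to 0.38, q = 0.053 to 0.087). AREG and TGFA of BxPC-3 with sgRUVBL1 held. ERBB2 in BxPC-3 experiment 2 sgRUVBL2 lost it without sgCDK1 replicate 1 or sgRUVBL2 replicate 3 (-0.40 to -0.30, q = 0.068 to 0.082). NRG1 in BxPC-3 experiment 2 sgRUVBL2 lost it without sgRPA3 replicate 1 or sgRUVBL2 replicate 2 (0.32 to 0.41, q = 0.056 to 0.057).

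CHD4 knockout in AsPC-1 was followed by rises of 4 EGFR ligands and no change of a receptor that passed. The count was 4 of 7 members (4 higher) against 50.0% of all genes, with medians of 0.52 over the members and -0.03 over all genes. HBEGF read 9.604, 9.72, 9.81 and 11.9 in sgRosa and 38.3, 40.7, 41.8 and 44.4 TPM in sgCHD4 (log2FC 1.91 ± 0.08 SE, q = 6.7e-09). AREG read 64.6, 72.5, 75.5 and 76.4 in sgRosa and 173, 179, 182 and 184 TPM in sgCHD4 (log2FC 1.305 ± 0.06 SE, q = 6.6e-09). In both the groups were far apart and did not overlap. TGFA (0.90, q = 8.3e-07) and EREG (0.52, q = 0.0012) rose less. All 4 calls held without any 1 library. SERPINB5 knockout, in the same line, called 0 of 7 members by limma against 0.0343% of all genes, with medians of -0.00093 and -0.03, and 1 member and 802 of all genes had an unadjusted p under 0.05. Of the 4 genes called, 50% were higher, and 0% of the 1 called after scaling.

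CB-6644 was given to AsPC-1 and T3M-4 cells with an empty vector or a resistant variant, to ask what depends on RUVBL1/2. Each vector had 1 DMSO library, so the 3 DMSO libraries of a line formed the control group, and values against the DMSO library of the same vector alone are given beside those against all 3. In empty vector AsPC-1 cells, HBEGF, EREG, TGFA and AREG rose, and ERBB2 and ERBB3 fell slightly, while in T3M-4 NRG1 fell and EPGN and BTC rose. The count in AsPC-1 was 6 of 7 (4 higher and 2 lower) against 64.4% of all genes in either direction, 47.2% higher and 17.2% lower, with medians of 0.74 and 0.19. In T3M-4 it was 3 of 10 (2 higher and 1 lower) against 34.3%, 19.1% higher and 15.2% lower, with medians of -0.12 and 0.04. Against the empty vector DMSO library alone, medians over members and all genes were 0.16 and 0.10 in AsPC-1 and 0.54 and 0.16 in T3M-4. In AsPC-1, higher genes were 73.3% of those called, and 49.5% with libraries scaled by the median of ratios.

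In AsPC-1, HBEGF read 28.1 (empty vector), 18.9 (A62T) and 14.3 (dF109) in DMSO, and 48.9, 50.99 and 51.1 TPM in empty vector libraries in CB-6644 (log2FC 1.31 ± 0.17 SE, q = 2.7e-05). EREG read 56.8 (empty vector), 32.9 (A62T) and 24.1 (dF109) in DMSO, and 81.9, 84.6 and 92.8 TPM in empty vector libraries in CB-6644 (log2FC 1.25 ± 0.21 SE, q = 0.00027). TGFA read 49.8 (empty vector), 31.9 (A62T) and 25.7 (dF109) in DMSO, and 76.7, 76.9 and 83.9 TPM in empty vector libraries in CB-6644 (log2FC 1.17 ± 0.16 SE, q = 5.7e-05). In all 3 the empty vector DMSO library was the highest of the DMSO libraries and below all empty vector libraries in CB-6644. Against the empty vector DMSO library alone the changes were smaller, HBEGF 0.82, TGFA 0.66 and EREG 0.60. AREG (0.74, q = 0.0044) was 0.16 against that library alone, and 0.48 (q = 0.0093) without the dF109 DMSO library. The falls of ERBB3 (-0.30, q = 0.0034) and ERBB2 (-0.22, q = 0.027) were smaller against the empty vector library (-0.12 and -0.17). That of ERBB2 was lost without A62T DMSO, or empty vector CB-6644 replicate 1 or 2 (q = 0.077 to 0.093).

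In T3M-4, NRG1 read 50.8 (empty vector), 64.4 (A62T) and 62.2 (dF109) in DMSO, and 12.98, 15.03 and 16.3 TPM in empty vector libraries in CB-6644 (log2FC -1.93 ± 0.11 SE, q = 2.9e-06). EPGN read 8.49 (empty vector), 5.54 (A62T) and 5.35 (dF109) in DMSO, and 13.3, 16.5 and 16.8 TPM in empty vector libraries in CB-6644 (log2FC 1.17 ± 0.15 SE, q = 0.00022). NRG1 was far below every DMSO library and EPGN above every one, also against the empty vector library alone (-1.72 and 0.80). HBEGF read 21.2 (empty vector), 116 (A62T) and 74.6 (dF109) in DMSO, and 34.7, 35.5 and 36.6 TPM in empty vector libraries in CB-6644 (log2FC -0.67 ± 0.43 SE, q = 0.25). TGFA read 15.8 (empty vector), 88.4 (A62T) and 58.4 (dF109) in DMSO, and 29.8, 32.4 and 36.01 TPM in empty vector libraries in CB-6644 (log2FC -0.41 ± 0.43 SE, q = 0.49). The 3 DMSO libraries of T3M-4 differ widely in both, as in AREG (204, 664 and 432 TPM), and the empty vector library is the lowest. Against it alone, HBEGF (0.72), TGFA (1.002) and ERBB3 (0.58) were higher. BTC was higher either way (0.44, q = 0.0041, and 0.49 against that library alone). With 1 DMSO library per vector, a difference between vectors and one between single cultures cannot be told apart.

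Against the 3 DMSO libraries, variant cells of AsPC-1 had fewer members called than empty vector cells, but dF109 had all 7 above its own. With A62T it was 0 of 7 members by limma in AsPC-1 against 12.7% of all genes (medians 0.21 and 0.10), with 3 at an unadjusted p under 0.05. With dF109 it was 3 of 7 (3 higher) against 33.4% (medians 0.12 and 0.14), the receptors EGFR (0.49, q = 0.0046), ERBB2 (0.28, q = 0.019) and ERBB3 (0.28, q = 0.015). In T3M-4, A62T cells had 7 of 10 (7 higher) against 50.0% (medians 0.70 and 0.33). Those with dF109 had 3 of 10 (3 higher) against 37.6% (medians 0.42 and 0.29). HBEGF read 135, 141 and 144 TPM in A62T cells in CB-6644 (log2FC 1.28 ± 0.43 SE, q = 0.030) and TGFA 96.5, 98.7 and 99.6 TPM (log2FC 1.15 ± 0.43 SE, q = 0.045), against the DMSO libraries given above. These lie above all 3 DMSO libraries but close to that of the A62T vector itself. Against the A62T DMSO library alone they were 0.27 and 0.15, and HBEGF was 0.59 (q = 0.017) without the empty vector DMSO library. The other calls were EGFR (0.80, q = 0.017), ERBB2 (0.45, q = 0.028), ERBB3 (0.66, q = 0.0071), EREG (0.94, q = 0.033) and BTC (0.35, q = 0.013) with A62T, and ERBB3 (0.44, q = 0.032), EREG (0.99, q = 0.034) and BTC (0.41, q = 0.0091) with dF109. With the libraries scaled by the median of ratios, 6 members were called in place of 13. The share of higher genes among those called was 84.4% in AsPC-1 A62T cells (48.1%), 87.7% in AsPC-1 dF109 cells (47.99%), 90.8% in T3M-4 A62T cells (43.2%) and 91.1% in T3M-4 dF109 cells (42.9%), with that after scaling in parentheses.

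Against the DMSO library of the same vector alone, 1 control library, effect sizes follow. With A62T, medians over members and all genes were 0.12 and 0.102 in AsPC-1 and 0.26 and 0.15 in T3M-4. The T3M-4 calls with A62T given above became EGFR (0.26), ERBB2 (0.26), ERBB3 (0.29), EREG (0.35), TGFA (0.15), HBEGF (0.27) and BTC (0.39). The median over all genes there was 0.15. With dF109 in AsPC-1, the median log2 fold change over all genes was 0.23. EGFR (0.71), EREG (0.61) and TGFA (0.53) were well above it, and ERBB2 (0.30), HBEGF (0.30), ERBB3 (0.23) and AREG (0.22) near it. In T3M-4 with dF109, the median over all genes was 0.32. EREG (0.88), EGFR (0.74), EPGN (0.60), ERBB3 (0.56), TGFA (0.49), HBEGF (0.44) and ERBB2 (0.40) were above it. BTC (0.32) was level with it, and AREG (0.21) and NRG1 (-0.30) were below.

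Without 1 library, 10 of the 13 calls in variant cells were lost. ERBB2 in AsPC-1 dF109 lost its call without dF109 CB-6644 replicate 1 or 2 (0.22 to 0.27, q = 0.068 to 0.088). ERBB3 in AsPC-1 dF109 lost it without dF109 CB-6644 replicate 1 or 2 (0.26 to 0.27, q = 0.056 to 0.061). EGFR of AsPC-1 with dF109 held. EGFR in T3M-4 A62T lost it without the dF109 DMSO library or the empty vector DMSO library (0.63 to 0.71, q = 0.061 to 0.062). ERBB2 in T3M-4 A62T lost it without A62T CB-6644 replicate 1, 2 or 3, the dF109 DMSO library or the empty vector DMSO library (0.37 to 0.47, q = 0.060 to 0.088). EREG in T3M-4 A62T lost it without A62T CB-6644 replicate 1, 2 or 3, the dF109 DMSO library or the empty vector DMSO library (0.60 to 1.00, q = 0.064 to 0.13). Each of these 3 was lost without the DMSO library of either other vector. TGFA in T3M-4 A62T lost it without A62T CB-6644 replicate 1, 2 or 3, dF109 CB-6644 replicate 1, 2 or 3, the dF109 DMSO library or empty vector CB-6644 replicate 2 (1.14 to 1.36, q = 0.060 to 0.099). HBEGF in T3M-4 A62T lost it without A62T CB-6644 replicate 1, 2 or 3 (1.26 to 1.31, q = 0.066 to 0.074). BTC in T3M-4 A62T lost it without A62T CB-6644 replicate 1 (0.32, q = 0.053). TGFA in A62T cells was also smaller without the empty vector DMSO library (0.45, q = 0.038). ERBB3 in T3M-4 dF109 lost it without dF109 CB-6644 replicate 1, 2 or 3, the dF109 DMSO library or the empty vector DMSO library (0.31 to 0.45, q = 0.073 to 0.11). EREG in T3M-4 dF109 lost it without dF109 CB-6644 replicate 1, 2 or 3, the dF109 DMSO library or the empty vector DMSO library (0.64 to 1.04, q = 0.075 to 0.12).

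The empty vector was then set against each variant, with all cells in CB-6644. In AsPC-1, 7 of 7 members differed from A62T cells (51.1% of all genes, medians 0.70 and 0.09) and 7 of 7 from dF109 cells (47.2%, medians 1.05 and 0.04), with the 4 ligands higher and the 3 receptors lower in empty vector cells. In T3M-4, it was 6 of 10 (50.6%, medians -1.07 and -0.27) and 6 of 10 (34.6%, medians -0.96 and -0.24), with EPGN higher and EGFR, AREG, TGFA, HBEGF and NRG1 lower. HBEGF in AsPC-1 in CB-6644 read 19.9, 22.5 and 22.5 TPM with A62T and 16.9, 17.8 and 18.7 TPM with dF109 (empty vector minus variant 1.18, q = 0.00011, and 1.45, q = 2.8e-05). EREG there read 39.9, 41.2 and 45.7 TPM with A62T and 33.4, 38.8 and 40.3 TPM with dF109 (1.02, q = 0.0018, and 1.19, q = 0.00072). TGFA there read 39.9, 40.5 and 42.03 TPM with A62T and 36.8, 37.9 and 38.1 TPM with dF109 (0.94, q = 0.00050, and 1.05, q = 0.00025). All variant libraries in CB-6644 were below all empty vector libraries in these ligands. AREG read 165, 166 and 166 TPM with the empty vector, 95.5, 102 and 108 TPM with A62T and 75.4, 80.5 and 81.7 TPM with dF109 (0.70, q = 0.0084, and 1.05, q = 0.00073). Each vector's own DMSO library was then subtracted. The differences from A62T and dF109 became 0.63 and 0.52 (HBEGF), 0.31 and 0.12 (TGFA) and 0.06 and -0.06 (AREG). Those of EREG were 0.25 and -0.02. Those of the receptors were -0.25 and -0.88 (EGFR), -0.29 and -0.47 (ERBB2) and -0.20 and -0.35 (ERBB3). Medians over members and all genes were 0.06 and -0.01 against A62T and -0.06 and -0.14 against dF109 in AsPC-1. In T3M-4 they were 0.23 and 0.03 against A62T and 0.01 and -0.15 against dF109. Without subtraction, the share of genes higher in empty vector cells among those called was 63.1% in AsPC-1 against A62T (49.1%), 18.2% in T3M-4 against A62T (49.8%) and 14.05% in T3M-4 against dF109 (49.6%), with that after scaling in parentheses.

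In T3M-4, NRG1 in CB-6644 read 50.5, 55.8 and 58.04 TPM with A62T and 47.2, 51.2 and 52.8 TPM with dF109 (empty vector minus variant -1.83, q = 9.8e-06, and -1.71, q = 3.4e-05). After the DMSO library of each vector was subtracted, NRG1 was still lower in empty vector cells (-1.49 and -1.42). The variant cells thus stayed near the DMSO level of NRG1 and the empty vector cells did not. HBEGF read 135, 141 and 144 TPM with A62T and 100.01, 103 and 103 TPM with dF109 (-1.95, q = 0.0041, and -1.49, q = 0.023). TGFA read 96.5, 98.7 and 99.6 TPM with A62T and 79.98, 81.96 and 85.6 TPM with dF109 (-1.56, q = 0.012, and -1.31, q = 0.037). These differences turned to the other side after subtraction (HBEGF 0.45 and 0.28, TGFA 0.85 and 0.51). The DMSO libraries of the vectors differ by more than the treated ones. AREG read 196, 220.2 and 255 TPM with the empty vector, 630.2, 632 and 677 TPM with A62T and 493, 498 and 504 TPM with dF109 (-1.53, q = 0.0025, and -1.16, q = 0.016). EGFR read 45.9, 67.2 and 82.3 TPM with the empty vector, 156, 166 and 169 TPM with A62T and 125, 139.7 and 146 TPM with dF109 (-1.35, q = 0.0011, and -1.099, q = 0.0068). After subtraction these were 0.16 and -0.08 (AREG) and -0.46 and -0.94 (EGFR), and those of EPGN 0.31 and 0.20. AREG in the direct comparison with dF109 lost its call without dF109 CB-6644 replicate 2 or 3 or empty vector CB-6644 replicate 3 (-1.17 to -1.07, q = 0.051). TGFA in the direct comparison with dF109 lost it without A62T CB-6644 replicate 1, 2 or 3, dF109 CB-6644 replicate 1, 2 or 3 or empty vector CB-6644 replicate 2 or 3 (-1.33 to -1.25, q = 0.053 to 0.096). HBEGF in the direct comparison with dF109 lost it without dF109 CB-6644 replicate 1, 2 or 3 or empty vector CB-6644 replicate 2 or 3 (-1.501 to -1.47, q = 0.056 to 0.066). EGFR in AsPC-1, empty vector against A62T, lost its call without A62T CB-6644 replicate 1 or empty vector CB-6644 replicate 1 or 2 (-0.28 to -0.26, q = 0.060 to 0.070). The subtraction was tried after the values were seen.

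**Figure D4:**
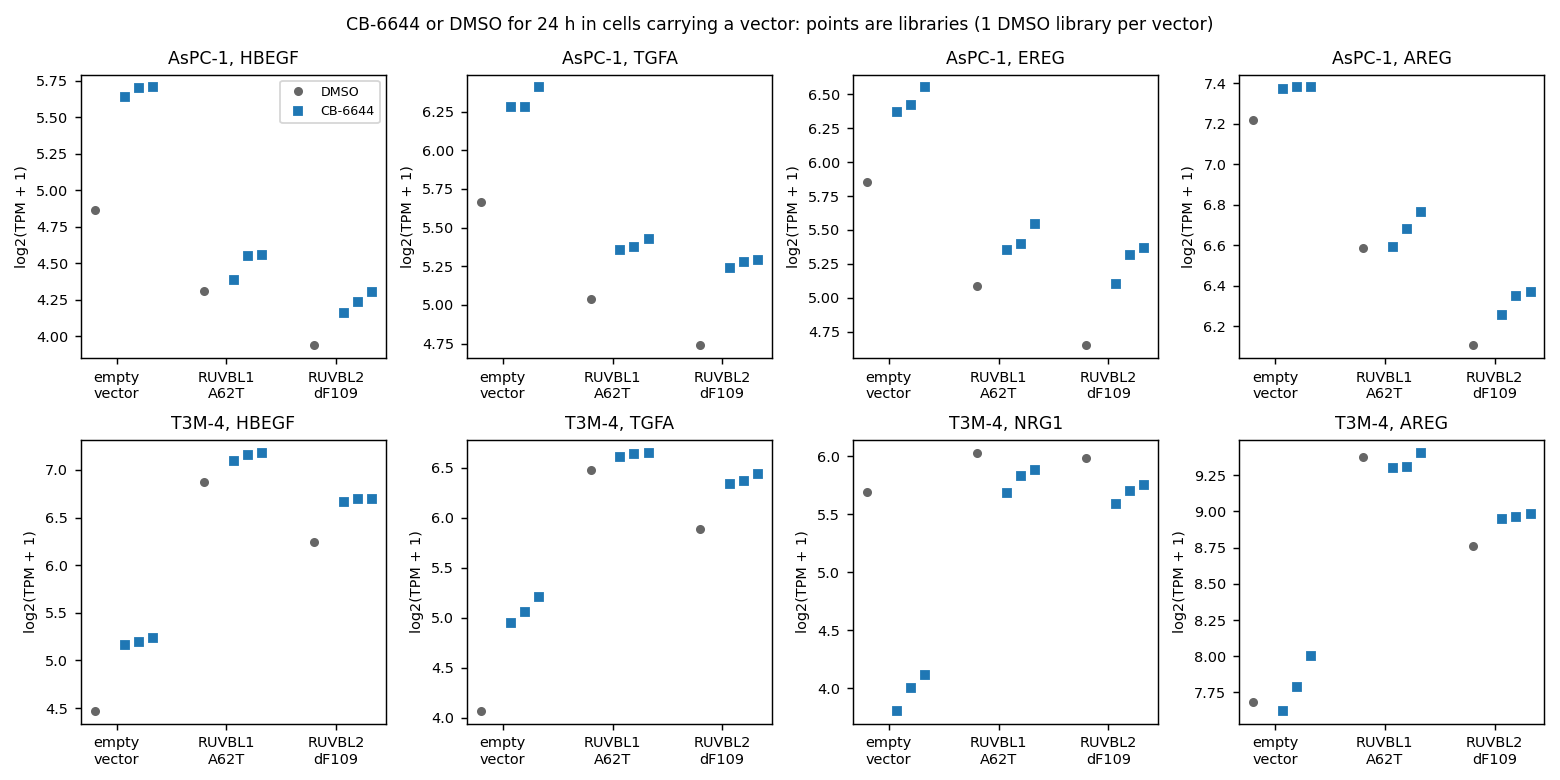
HBEGF, TGFA, AREG and EREG (AsPC-1) or NRG1 (T3M-4) in cells with the A62T or dF109 variant or an empty vector, on log2(TPM + 1). Grey circles are the single DMSO library of each vector and blue squares the 3 libraries in CB-6644. The T3M-4 DMSO libraries differ by vector in HBEGF, TGFA and AREG, and NRG1 falls in empty vector cells in CB-6644 while the variant cells stay near their DMSO library.

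CB-6644 was also given to T84, A-375, H1048 and RH30 cells, which carry no vector, with 4 libraries in each group. HBEGF and TGFA rose and EGFR fell in all 4 lines, and NRG1 fell in both lines in which it was tested (A-375 and H1048). AREG rose in the 3 lines in which it was tested. In T84, 7 of 8 members were called (6 higher and 1 lower) against 71.4% of all genes, 47.2% higher and 24.2% lower, with medians of 0.43 over the members and 0.13 over all genes. In A-375 it was 8 of 8 (4 higher and 4 lower) against 81.1%, 51.5% and 29.7%, with medians of 0.08 and 0.16. In H1048 it was 9 of 9 (7 higher and 2 lower) against 77.9%, 53.9% and 24.0%, with medians of 0.48 and 0.18. In RH30 it was 3 of 5 (2 higher and 1 lower) against 77.7%, 50.4% and 27.3%, with medians of 0.02 and 0.13. Most genes were called in each line, and the sizes and values of the members follow. The share of higher genes among those called was 66.1% in T84 (50.1%), 63.4% in A-375 (50.2%), 69.2% in H1048 (50.2%) and 64.8% in RH30 (49.7%), with the share under median-of-ratios scaling in parentheses.

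HBEGF in A-375 read 128, 129, 130.4 and 131 TPM in CB-6644 (log2FC 3.497 ± 0.05 SE, q = 6.0e-13). HBEGF in RH30 read 81.01, 84.5, 87.6 and 88.1 TPM in CB-6644 (log2FC 1.68 ± 0.04 SE, q = 3.0e-12). HBEGF in H1048 read 14.8, 14.8, 14.97 and 15.3 TPM in CB-6644 (log2FC 1.38 ± 0.06 SE, q = 9.5e-10). A-375 had the largest rise of any member in the 39 comparisons, and in each line all CB-6644 libraries were above all DMSO libraries. In T84, HBEGF rose by a little less than 1 on the log2 scale (0.94, q = 3.3e-09). TGFA in RH30 read 1.997, 1.998, 2.21 and 2.399 TPM in CB-6644 (log2FC 1.301 ± 0.09 SE, q = 6.9e-08). TGFA in A-375 read 332, 351, 354 and 358 TPM in CB-6644 (log2FC 1.13 ± 0.03 SE, q = 3.3e-11). RH30 started below 1 TPM of TGFA and A-375 from the highest level of these lines, and neither overlapped. TGFA in T84 read 70.7, 74.9, 78.3 and 79.4 TPM in CB-6644 (log2FC 1.04 ± 0.06 SE, q = 1.4e-09). EREG in T84 read 185, 194, 202 and 212 TPM in CB-6644 (log2FC 1.03 ± 0.06 SE, q = 1.3e-09). Neither overlapped, and TGFA also rose in H1048 (0.70, q = 2.2e-05).

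EGFR in A-375 read 3.29, 4.22, 4.29 and 4.51 TPM in CB-6644 (log2FC -1.25 ± 0.08 SE, q = 8.0e-08). NRG1 in A-375 read 2.28, 2.73, 2.77 and 3.03 TPM in CB-6644 (log2FC -1.595 ± 0.08 SE, q = 9.3e-09). Both fell with no overlap. Medians over long transcripts, short ones and all genes in A-375 were 0.12, 0.14 and 0.16, and their part was not tested. EGFR fell less in H1048 (-0.41, q = 2.5e-07), RH30 (-0.40, q = 6.7e-06) and T84 (-0.31, q = 0.0066), and NRG1 in H1048 (-0.35, q = 0.0098). ERBB3 fell in A-375 (-0.79, q = 6.2e-08) and rose in H1048 (0.48, q = 4.4e-08) and T84 (0.30, q = 0.00012), and ERBB2 changed little, by -0.26, q = 5.4e-05 in A-375 and 0.19, q = 0.0028 in H1048. AREG rose in H1048 (0.96, q = 1.1e-05), A-375 (0.47, q = 3.5e-06) and T84 (0.19, q = 0.00052). EPGN (0.74, q = 0.00012) and EREG (0.41, q = 0.0074) rose in H1048 from below 1 TPM, and BTC rose in T84 (0.55, q = 2.9e-06) and A-375 (0.42, q = 0.0037). No call of these lines was lost without 1 library where the gene was still tested, and EREG of H1048 was too low to be tested without CB-6644 replicate 1, 2 or 3.

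**Figure D5:**
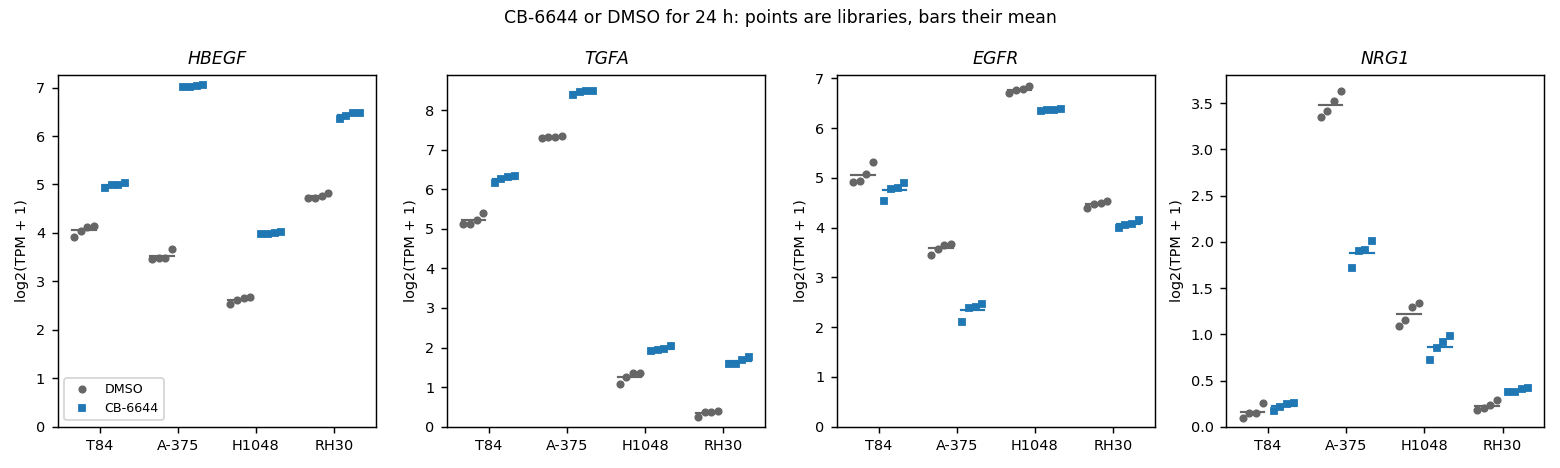
HBEGF, TGFA, EGFR and NRG1 in RH30, H1048, A-375 and T84 given DMSO (grey circles) or CB-6644 (blue squares), on log2(TPM + 1), 4 libraries per group, bars are means. HBEGF and TGFA are higher and EGFR lower in CB-6644 in all 4 lines, with the largest change in HBEGF of A-375.

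Other genes of the pathway were taken from a list of 36 and counted over the same 39 comparisons, and each count is over gene and comparison pairs, to be read against the shares of all genes given above. Receptor inhibitors and degraders were called 84 higher, 52 lower and 239 neither, response genes of the MAPK pathway 59 higher, 60 lower and 154 neither, adaptors 69 higher, 19 lower and 185 neither, shedding and trafficking genes 57 higher, 24 lower and 190 neither, and the remaining receptor and ligands (ERBB4, EGF, NRG2, NRG3 and NRG4) 9 higher, 7 lower and 44 neither. The 6 named are those called most often (SOS2, SPRY2 and SPRY4 tied for the last place, and SOS2 comes first by name). DUSP6, a phosphatase of ERK and a common readout of MAPK signalling, was called 17 higher and 6 lower of 39 comparisons, and LRIG3, a relative of the receptor inhibitor LRIG1, 9 higher and 14 lower of 39. LRIG3 was lower in all 4 lines without a vector in CB-6644, with log2 fold changes of -1.04, q = 9.3e-10 in A-375 and -0.81, q = 8.2e-08 in T84, and higher in 5 KLF5 knockouts. ERRFI1, which binds and inhibits EGFR, was called 12 higher and 6 lower of 39, higher in 6 of the 8 KLF5 comparisons, with 1.45, q = 0.036 in SUIT-2 and 1.43, q = 7.1e-06 in AsPC-1 experiment 1. PHLDA1 was called 8 higher and 11 lower of 39 and DUSP4, another phosphatase, 8 higher and 10 lower of 39, with falls in 5 KLF5 knockouts, the largest in BxPC-3 experiment 1 (-1.03, q = 8.4e-05). SOS2, a RAS exchange factor, was called 17 higher and 0 lower of 39.

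The neighbours of the ligand cluster on chromosome 4, from RASSF6 to PARM1, were called 86 higher, 22 lower and 153 neither, and 1 of the 12 (MTHFD2L) was not among the gene names. CXCL8, a neutrophil chemokine gene, was called 17 higher and 4 lower of 38 comparisons, and PARM1, a mucin-like gene next to BTC, 11 higher and 0 lower of 19. The chemokine genes rose with KLF5 knockout most in BxPC-3 experiment 2, where CXCL8 changed by 4.42, q = 1.9e-11 and CXCL1 by 4.25, q = 4.0e-11, while AREG and EREG of the same cluster were at -0.21 and 0.28 (q = 0.082 and 0.24). In T84 with CB-6644, CXCL8 changed by -1.798, q = 2.0e-10 and CXCL1 by -1.902, q = 5.0e-10, while EREG changed by 1.03, q = 1.3e-09. The chemokine genes and the EGFR ligands of the cluster thus had opposite signs in that line.

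For the 5 members tested in all 39 comparisons, the 3 genes with the most similar log2 fold changes were found among 9564 genes tested in all of them, as a description, since comparisons share control libraries and their fold changes are not independent. For EGFR they were TNRC6A (r = 0.92), CNOT1 (r = 0.89) and BICRAL (r = 0.89), for ERBB2 CAPN5 (r = 0.86), CALCOCO1 (r = 0.85) and MYH14 (r = 0.84) and for ERBB3 ERBB2 (r = 0.82), B4GALT5 (r = 0.81) and CALCOCO1 (r = 0.81). For TGFA they were EAF1 (r = 0.90), BTBD10 (r = 0.89) and C3orf52 (r = 0.88), and for HBEGF TPD52L2 (r = 0.81), SDCBP2 (r = 0.81) and SDC4 (r = 0.80). Among the members, ERBB2 and ERBB3 had r = 0.82 and TGFA and HBEGF r = 0.74, while EGFR had r = 0.29 with TGFA and 0.11 with HBEGF.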

How the data were processed

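Poly-A RNA was sequenced single-end. Per the methods of the study, the authors pseudoaligned reads to hg38 with kallisto (version not given in the sources used here), removed low-abundance transcripts (limit not stated) and deposited gene-level TPM, the share of a gene's transcripts per length, from tximport in 8 tables. TPM sum to 1000000 in each library, so read depth is unknown, and removed transcripts could lower a gene's value. They left out 1 T3M-4 RUVBL1 library for its low concentration.

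Groups came from the sample labels. Genes whose mean over a fit's libraries reached 1 TPM were fitted on log2(TPM + 1) with limma 3.58.1 (trend) in R 4.3.3, with all groups of an experiment in 1 fit, and p-values were adjusted by Benjamini-Hochberg over all genes tested, with 0.05 as the threshold. Effects between lines or experiments were tested as interactions. The fit was tested on simulated data. The members, the pathway list and the chromosome 4 neighbours were chosen with earlier results of these data known. Values in every library are given for members whose log2 fold change is at least 1 and called, and in the KLF5 knockouts for members called in at least 4 of the 8. The 6 pathway genes named are those called most often. Alternatives were a pseudocount of 0.1, no filter or 5 TPM, median-of-ratios scaling, fits of only the groups compared, a replicate block, the DMSO library of the same vector alone, and each library left out in turn.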

Additional observations from a re-analysis of the deposited data

Results flagged for a closer look

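Of 241 sets of 1 gene in 1 group of 4 to 10 libraries, 19 held a library farther from the others than Dixon's 95% critical value, where chance gives about 1 in 20, and the value is given with the range of the other libraries. For EGFR they were AsPC-1 sgRUVBL1 replicate 4 of experiment 3 (162 TPM against 256 to 267), AsPC-1 sgRosa replicate 4 of the CHD4 experiment (134 TPM against 159 to 164) and AsPC-1 sgSERPINB5 replicate 4 of experiment 2 (53.8 TPM against 129 to 139.6). For ERBB2 they were A-375 DMSO replicate 2 (29.01 TPM against 30.5 to 30.7) and T84 DMSO replicate 2 (26.5 TPM against 23.3 to 23.8). For ERBB3 it was BxPC-3 sgKLF5 replicate 1 of experiment 2 (27.3 TPM against 33.95 to 35.3). For AREG it was T3M-4 sgKLF5 replicate 2 of experiment 1 (297 TPM against 392 to 403). For EREG they were BxPC-3 sgRUVBL1 replicate 3 of experiment 2 (30.7 TPM against 43.2 to 44.7), SUIT-2 sgRosa replicate 1 (32.9 TPM against 156 to 161) and T3M-4 sgRosa replicate 4 of experiment 2 (33.7 TPM against 76.2 to 80.3). For TGFA they were SUIT-2 sgKLF5 replicate 2 (62.1 TPM against 88.4 to 90.5) and SUIT-2 sgRosa replicate 1 (36.2 TPM against 110.1 to 125). For HBEGF they were A-375 DMSO replicate 1 (11.7 TPM against 10.05 to 10.2) and AsPC-1 sgRosa replicate 4 of the CHD4 experiment (11.9 TPM against 9.604 to 9.81). For BTC they were A-375 CB-6644 replicate 1 (1.89 TPM against 1.66 to 1.69) and A-375 DMSO replicate 1 (0.644 TPM against 1.19 to 1.202). For EPGN it was T3M-4 sgRUVBL2 replicate 2 of experiment 2 (7.93 TPM against 5.29 to 5.404). For NRG1 they were SUIT-2 sgRosa replicate 1 (0.785 TPM against 1.301 to 1.32) and T3M-4 sgKLF5 replicate 3 of experiment 2 (47.3 TPM against 42.6 to 42.97). SUIT-2 sgRosa replicate 1 appears for 3 members and T3M-4 sgKLF5 replicate 2 of experiment 1 for 1, and both were low in long mRNAs.

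The effects of 41 gene and knockout pairs differed between lines or experiments in the tests of the difference described above, by limma, with q the adjusted p. Among the 4 lines these were with sgKLF5 EGFR (q = 0.021), ERBB2 (q = 0.00011), ERBB3 (q = 6.0e-09), EREG (q = 0.048), HBEGF (q = 1.2e-06), BTC (q = 0.010), EPGN (q = 6.4e-05) and NRG1 (q = 3.7e-10). With sgRUVBL1 they were EGFR (q = 0.00023), ERBB2 (q = 8.9e-06), ERBB3 (q = 2.7e-13), AREG (q = 1.2e-07), EREG (q = 1.2e-07), TGFA (q = 0.00023), HBEGF (q = 1.2e-05), BTC (q = 0.00022), EPGN (q = 0.024) and NRG1 (q = 6.0e-08). With sgRUVBL2 they were ERBB2 (q = 0.00016), ERBB3 (q = 1.4e-09), AREG (q = 0.00028), EREG (q = 4.3e-06), TGFA (q = 0.049), HBEGF (q = 0.00016), EPGN (q = 0.012) and NRG1 (q = 1.9e-07). Between the experiments of a line, the KLF5 effect differed in AsPC-1 for ERBB3 (q = 0.0054) and HBEGF (q = 0.014), in T3M-4 for EGFR (q = 0.045), TGFA (q = 0.0020), HBEGF (q = 0.00089) and EPGN (q = 0.024) and in BxPC-3 for ERBB2 (q = 0.028), AREG (q = 0.0012), TGFA (q = 0.00043), HBEGF (q = 3.1e-08), BTC (q = 0.038) and NRG1 (q = 0.0058). The RUVBL1 effect differed between the experiments of AsPC-1 for AREG (q = 0.028), EREG (q = 0.0073) and HBEGF (q = 0.044). The sizes stand beside these tests where they are named.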

How the results depend on the processing

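Of 318 calls of members, 76 were lost and 3 moved by over 1.5 times in size without some 1 library, and none turned. Fewer calls were lost with another setting: 27 with median-of-ratios scaling, 23 with only the groups compared in the fit, 20 with no filter on low values, 8 with a pseudocount of 0.1 and 0 with a minimum mean of 5 TPM. For the DMSO library of the same vector alone, effect sizes are given above. In variant cells in CB-6644, 13 members called became 6 with median-of-ratios scaling, and with 1 library left out 7 to 19 (lowest without the T3M-4 dF109 DMSO library, highest without the T3M-4 A62T DMSO library). Members that differed between RUVBL1 experiments went from 3 to 1 with no filter and were 1 to 3 with 1 library left out. The comparison of empty vector with variant cells went from 26 to 9 members with each vector's DMSO library subtracted, an alternative chosen after seeing the data. There, 7 differences turned: AREG (-0.064) and EREG (-0.019) against dF109 in AsPC-1, AREG (0.16), TGFA (0.85) and HBEGF (0.45) against A62T in T3M-4, and TGFA (0.51) and HBEGF (0.28) against dF109 in T3M-4. The DMSO libraries of the vectors enter this value by construction, and beyond that the cause was not tested.

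With 1 library left out, the members called were 26 to 34 (KLF5), 25 to 30 (RUVBL1), 12 to 16 (RUVBL2), 18 to 22 (CDK1 and RPA3), 4 to 5 (CHD4), 0 (SERPINB5), 8 to 13 (empty vector), 23 to 30 (empty vector against variants), 26 to 27 (4 lines in CB-6644), 22 to 27 (among lines), 10 to 16 (KLF5 between experiments), 53 to 61 (against CDK1 and RPA3) and 47 to 49 (control levels). Libraries with the same replicate number did not deviate together (median correlation per fit -0.29 to 0.06), so the numbers do not pair them. With the replicate number as a block all the same, the members called were 33 (KLF5), 28 (RUVBL1), 14 (RUVBL2), 21 (CDK1 and RPA3), 4 (CHD4), 0 (SERPINB5), 27 (4 lines), 26 (among lines), 17 (KLF5 between experiments, 12 without the block), 2 (RUVBL1 between experiments), 60 (against CDK1 and RPA3) and 47 (control levels). No paired analysis was possible for the vector cells because each vector has 1 DMSO library. Depth is unknown, so TPM near 0 cannot be given a counting limit.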
